A study of Mus musculus with 12 samples.

Results

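Gene expression was compared between macrophages of the mouse central nervous system (CNS) that descended from Tgfbr2 KO bone marrow and those that descended from WT bone marrow. The comparison used 6 of the study's 12 RNA-seq libraries, 3 whose titles end in Mac_KO and 3 whose titles end in Mac_WT. The other 6 libraries came from WT and KO microglia and served as a reference for the effect of the deletion in the resident cells of the CNS. WT marrow was Tgfbr2fl/fl, with both copies of the gene flanked by recombination sites and no Cre. KO marrow was Cx3cr1CreER/+Tgfbr2fl/fl, in which tamoxifen activates a Cre recombinase made from 1 Cx3cr1 allele. Recipients of both kinds of marrow were irradiated Cx3cr1CreER/+R26DTA/+ mice, whose own Cx3cr1-expressing cells make diphtheria toxin A once tamoxifen is given. Tamoxifen was given 6 weeks after the transplant as 3 daily injections of 5 mg, and the macrophages were sorted 18 to 22 days after it. The microglia libraries carry the same dose and interval after tamoxifen, but a time after transplant is given for the macrophages only. Transplant and cell origin thus cannot be told apart where macrophages are compared with microglia. All mice are labelled C57BL/6, each library is a pool of 1 to 5 mice, and the labels give no ages.

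Several features of this design bear on every value that follows. Live Ly6C-negative, CD11b-positive cells were taken with low F4/80 in the WT group and with high F4/80 in the KO group, so genotype and sort gate cannot be told apart. The CreER allele replaces a Cx3cr1 copy in the KO donor cells but not in the WT donor cells. The table carries no mark of donor origin, so whether host microglia that outlived the toxin were among the sorted cells was not tested. Each library is a bulk measurement, in which fewer cells of a type and less RNA per cell cannot be told apart. The labels give 3 biological samples per group, so the p-values measure the spread between pools of mice.

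TGF-beta is secreted in a latent form, is freed by integrins and other activators, and binds a receptor made of TGFBR2 and TGFBR1, which passes the signal to SMAD2 and SMAD3. In the CNS this pathway is known for upholding the gene program of resident microglia, and marrow-derived macrophages that settle in an emptied niche take up part of that program. TGF-beta is also known as a brake on antigen presentation and on the inflammatory output of macrophages.

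Values below are normalized counts, that is reads in a gene divided by the size factor of the library, in the order of replicates 1, 2 and 3. Fold changes are KO minus WT on the log2 scale of the normalized count plus 1, with the standard error from limma after the ± sign and the Benjamini-Hochberg adjusted p over 12519 tested genes. A gene rose or fell where that adjusted p was under 0.05, with 3 libraries a group throughout. The 6 macrophage libraries held 2615404 to 6364994 reads in genes, and KO replicate 1 was the shallowest of them. Macrophage identity held in both groups by defining genes: Ptprc (CD45) averaged 5944 ± 274 in WT and 7874 ± 1051 in KO (mean ± SD), and Csf1r, the receptor for the survival factor of macrophages, 13398 ± 662 and 9979 ± 271. Of the 12 pan-macrophage genes tested, 5 rose and 2 fell (across all tested genes 31.4% were called, 16.0% higher and 15.4% lower in KO), with the lowest log2 fold change at -0.92 for Itgam (CD11b) and the highest at 1.15 for Cd68. T and NK cell genes Cd3e and Nkg7 and the neutrophil genes S100a8 and Ngp did not pass the filter on low values.

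The targeted gene was read at 3427, 2997 and 3486 in WT and 2068, 2469 and 2167 in KO (log2 fold change -0.56 ± 0.10, adjusted p = 0.000608). All KO libraries were lower than all WT libraries, and most of the gene's signal remained. The count covers the whole gene, exons outside the deleted part included, so it is a weak check of the deletion. Adgre1, which encodes the F4/80 antigen used for sorting, stood at 2559, 2402 and 2835 in WT and 3898, 3928 and 3551 in KO, and its transcript difference (log2 fold change 0.55 ± 0.09, adjusted p = 0.000336) moves with the gate as well as with the genotype. Cx3cr1, the fractalkine receptor gene that carries CreER on 1 allele in KO cells, stood at 8268, 7169 and 8319 in WT and 1359, 1518 and 1452 in KO (log2 fold change -2.45 ± 0.15, adjusted p = 1.29e-08). Every KO library was far below every WT library, and the parts of the allele and of the loss of Tgfbr2 cannot be told apart. The Y-linked Ddx3y was read at 0.91, 8.90 and 653 in WT and 0, 540.1 and 0 in KO, high in WT replicate 3 and KO replicate 2.

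KO replicate 1 stood apart from the other KO libraries, and each finding was therefore also computed without it. Across tested genes its log2 values correlated with those of KO replicates 2 and 3 at 0.935 and 0.936, against 0.980 between replicates 2 and 3, as a description across genes that share a library's depth and composition. For the 3390 genes called without it (27.1% of tested genes), its distance from the WT mean was a median 1.19 times that of replicates 2 and 3, with 1.07 among genes that rose and 1.38 among genes that fell. In the same measure replicate 2 reached 0.81 and replicate 3 reached 0.71 of the others. The library thus lay further from WT than the others, more so among genes that fell. In it, 93.2% of these genes lay beyond the WT range on the side of the call. Of the 25 largest falls described further on, all 25 were lowest in KO replicate 1, where a median 4.45% of the WT mean was left, against 16.8% in replicate 2 and 14.1% in replicate 3. Those genes were ranked by a fold change that includes KO replicate 1, which favours genes that are low in it. Ranked and filtered without that library, an alternative chosen after seeing the data, 24 of the 25 largest falls were lowest in it, with medians of 5.02%, 16.5% and 14.1% left in replicates 1, 2 and 3, and 21 genes were in both rankings.

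**Figure D1:**
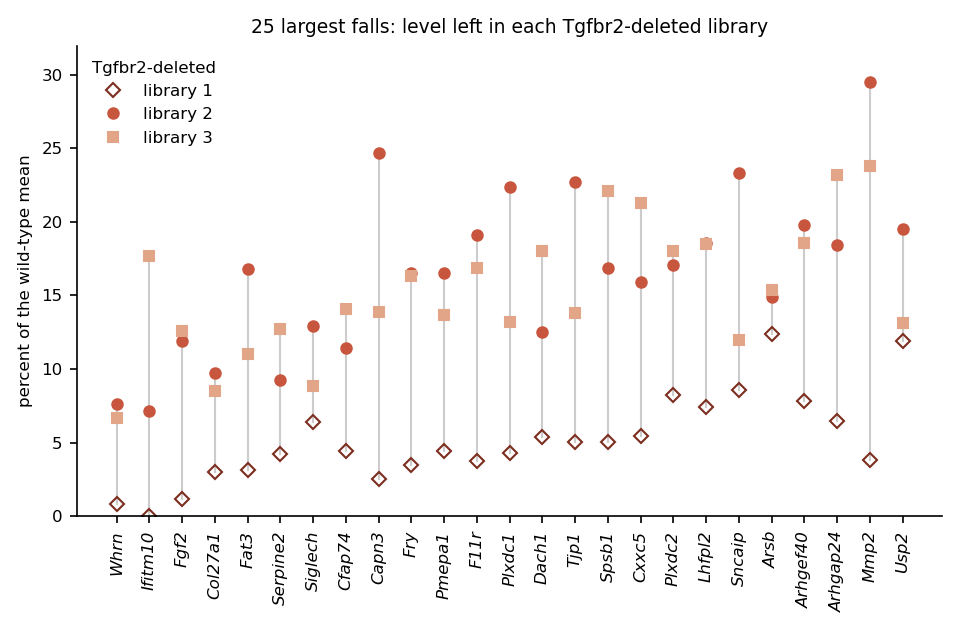
Level of the 25 genes with the largest falls in each KO library, as percent of the mean of the 3 WT libraries (vertical axis, linear). Open diamonds are KO replicate 1, circles replicate 2 and squares replicate 3, and the diamond is the lowest point for all 25 genes, which were ranked with that library included, from 0% for Ifitm10 to 12.4% for Arsb.

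The same library also carried higher levels of immediate-early genes, a class that is known to respond quickly to stress and handling of cells. Klf2 was read at 1215, 266 and 203 in the KO libraries, Klf4 at 351, 49.7 and 55.3 and Ier3 at 333, 47.1 and 40.2, and the highest WT libraries of the 3 genes stood at 353, 155 and 61.0. For Gadd45g, a stress-response gene, the KO values were 266, 64.6 and 61.0. Replicate 1 was the highest of the 6 macrophage libraries for all 4 genes. Without it the log2 fold change was -1.17 for Gadd45g and -0.81 for Klf4. These genes were picked because they set replicate 1 apart, so no test of that difference is given. That choice also favours genes that are low in KO replicates 2 and 3, so the values without replicate 1 are given with no test. Of the 29 immediate-early and heat-shock genes tested, 4 rose and 2 fell with all libraries (16.0% and 15.4% of all tested genes). Without KO replicate 1, 4 rose and 7 fell (14.3% and 12.8% of all tested genes). The falls among them came to 0 without WT replicate 1 or WT replicate 2 and to 1 without KO replicate 2 or 3. Their summed level was 17163 to 27070.3 in WT and 18242 to 42786 in KO, and its part in other results was not tested.

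Genes of the TGF-beta pathway changed at several levels. Among the ligands and their activators, 8 of 13 genes were tested, 3 rose and 4 fell. Tgfb1, the main ligand of myeloid cells, was read at 542, 607 and 602 in WT and 1223, 1089 and 1164 in KO (log2 fold change 0.99 ± 0.09, adjusted p = 8.47e-07). Every KO library lay above every WT library. Tgfb3 was read at 5.46, 6.35 and 2.47 in WT and 43.2, 48.0 and 37.3 in KO (log2 fold change 2.99 ± 0.39, adjusted p = 3.09e-05), a rise from a low level. Nrros, whose product holds latent TGF-beta1 on the surface of microglia and macrophages, was read at 915, 868 and 959 in WT and 1862, 1804 and 1747 in KO (log2 fold change 0.98 ± 0.10, adjusted p = 3.04e-06), again without overlap. The integrin chains that free the latent ligand were lower in KO. Itgb8, the beta8 chain, was read at 102, 63.5 and 86.4 in WT and 12.8, 25.3 and 15.8 in KO (log2 fold change -2.19 ± 0.41, adjusted p = 0.000919), and Itgav, its alpha-v partner, at 1355, 1221 and 1401 in WT and 447, 695 and 690.2 in KO (log2 fold change -1.14 ± 0.15, adjusted p = 3.11e-05). Thbs1, a matrix protein that can activate the ligand, was read at 317, 332 and 352 in WT and 65.6, 141.4 and 103 in KO (log2 fold change -1.75 ± 0.23, adjusted p = 3.76e-05), and Ltbp3, a latent TGF-beta binding protein, changed by -0.94 ± 0.20. All KO levels of these 4 genes were below their lowest WT level. Furin, the protease that processes the ligand precursor, was not called (0.09 ± 0.12).

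Of 10 receptor genes tested, 4 fell and 2 rose. The largest fall was in Tgfbr1, which encodes the signalling partner of TGFBR2 and was read at 8778, 8011 and 9026 in WT and 1869.5, 2824 and 2789 in KO (log2 fold change -1.81 ± 0.13, adjusted p = 8.30e-08). Acvr1 (-1.03 ± 0.15) and Bmpr2 (-0.73 ± 0.12), receptors of the related BMP and activin ligands, fell as well. Eng, the co-receptor endoglin, rose from 62.8, 89.0 and 59.3 to 200.1, 175 and 172 (log2 fold change 1.38 ± 0.14, adjusted p = 3.26e-06), and the activin receptor Acvr1b rose by 0.61 ± 0.13. Eng moved the other way in KO microglia, at -1.74 ± 0.14, and the difference between the cell origins was called (difference 3.12 ± 0.20, adjusted p = 3.22e-08). The other 4 tested receptor genes were not called.

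Of 10 Smad genes and partners tested, 2 fell and 0 rose (limma, with 0 at an unadjusted p under 0.05). Over all tested genes, 15.4% fell and 16.0% rose. The transcripts of Smad2 (0.15 ± 0.10), Smad3 (-0.27 ± 0.11) and Smad4 (-0.05 ± 0.10), which carry the signal to the nucleus, were not called. Smad3 was called lower after rescaling to total reads (-0.34, adjusted p = 0.0252) or to the upper quartile (-0.31, adjusted p = 0.0371). Both falls were in TGIF repressors, Tgif1 at 512, 463 and 436 in WT and 288, 346 and 302 in KO (log2 fold change -0.59 ± 0.10, adjusted p = 0.000562) and the weakly read Tgif2 (-2.11 ± 0.59, which was -1.28 without KO replicate 1 and -2.78 without KO replicate 2). The call for Tgif2 was lost with the 6 macrophage libraries alone (adjusted p = 0.0741) and with library weights (-1.06, adjusted p = 0.0515).

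Feedback and target genes fell more often than they rose, 9 of 16 tested, with 3 rises and a median log2 fold change of -0.79 against 0.00072 over all tested genes. Ski, a corepressor that binds SMADs, was read at 1857, 1742 and 1802 in WT and 661, 927 and 940.1 in KO (log2 fold change -1.11 ± 0.11, adjusted p = 2.29e-06). Smurf1 (-0.64 ± 0.12) and Smurf2 (-0.70 ± 0.10) encode ubiquitin ligases that end the signal. Smad6, an inhibitory SMAD, was read at 32.8, 54.6 and 33.7 in WT and 0, 14 and 7.90 in KO (log2 fold change -2.98 ± 0.72, adjusted p = 0.00556), and no read fell in it in KO replicate 1. Without that library its log2 fold change was -1.80, and without KO replicate 2 it was -3.75. In these genes the groups did not overlap. Rises were seen in Id2, Klf10 and Cdkn1a, which respond to many other signals too. Id2 was read at 84.7, 94.0 and 83.1 in WT and 352, 175 and 195 in KO, Klf10 at 52.8, 57.2 and 60.9 in WT and 168, 105 and 92.6 in KO and Cdkn1a, a cell cycle inhibitor, at 48.2, 38.1 and 27.2 in WT and 225.7, 75.0 and 70.4 in KO. KO replicate 1 was highest in each, and without it their log2 fold changes were 1.08, 0.78 and 0.96, still called. Hpgd, which breaks down prostaglandins, and Bambi, a decoy receptor, were not called.

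Over all genes, 3934 of 12519 were called (31.4%), 2001 higher (16.0%) and 1933 lower (15.4%) in KO. These shares are the background for every count of list members. Without KO replicate 1 the count was 3390 (27.1%), of which 3123 were called in the same direction with all libraries and none of the shared calls changed direction. Rises were larger than falls at the extreme: 345 called genes were at least 4-fold higher and 244 at least 4-fold lower, and 66 were at least 16-fold higher against 11 lower. Groups did not overlap for 5659 genes (45.2%). The split of calls depended on scaling, with 50.9% of calls higher on the authors' size factors and 40.9% after scaling to total reads.

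**Figure D2:**
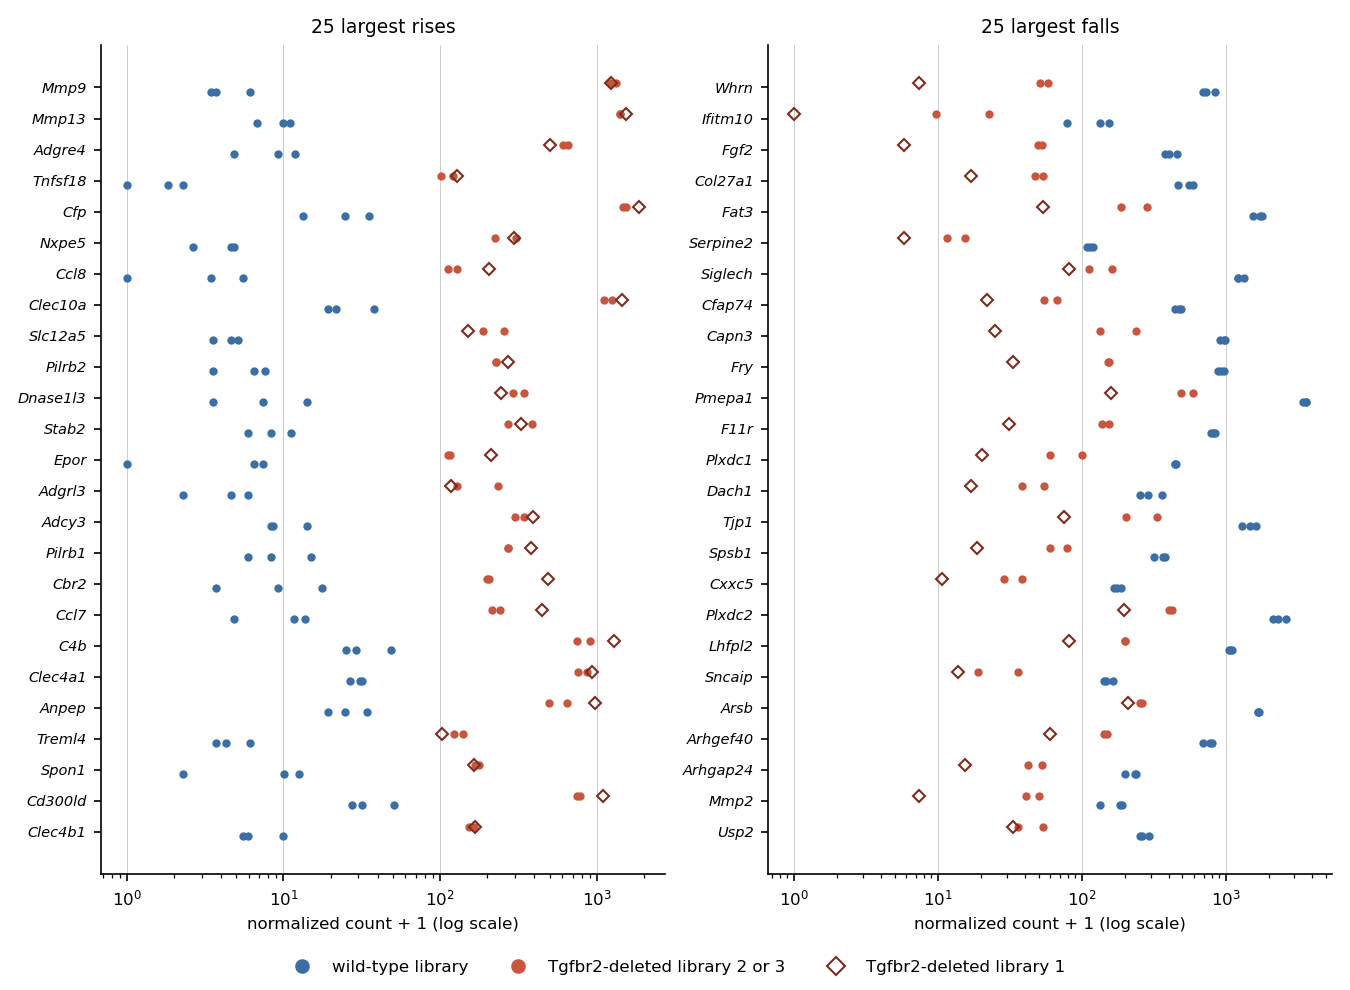
Normalized count plus 1 on a log scale of the 25 largest rises (left) and falls (right) among called genes whose groups did not overlap. Blue circles are WT libraries, red circles KO replicates 2 and 3 and open diamonds KO replicate 1; Whrn falls from 692, 838 and 731 to 6.4, 57.6 and 50.3 and Adgre4 rises from 10.9, 3.81 and 8.23 to 504, 657 and 604.

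The 25 largest rises and 25 largest falls were chosen among called genes whose groups did not overlap. A call without KO replicate 1 was required too. Neither property is a finding about these genes, here or in later paragraphs. The largest rises included secreted enzymes, surface receptors and chemokines. The metalloproteinase genes Mmp9 (8.20 ± 0.31) and Mmp13 (7.32 ± 0.26), which encode enzymes that cut matrix proteins, led them, with 2.73, 5.08 and 2.47 in WT and 1234, 1216 and 1319 in KO for Mmp9. Cfp, which encodes properdin and stabilises the alternative complement pathway, gave 6.16 ± 0.27, and the lectin receptor gene Clec10a gave 5.67 ± 0.27. Adgre4, an adhesion G protein-coupled receptor related to F4/80, was read at 10.9, 3.81 and 8.23 in WT and 504, 657 and 604 in KO (log2 fold change 6.18 ± 0.35, adjusted p = 7.55e-09). Tnfsf18, the ligand of the T cell receptor GITR, had 2 reads over the 3 WT libraries and 356 over the KO libraries, a ratio of 174 with a counting interval from 47.9 to 1446. Both genes were close to unread in WT and clearly read in every KO library. Dnase1l3, a secreted nuclease that digests DNA released by dying cells, was read at 6.37, 2.54 and 13.2 in WT and 245, 343 and 292 in KO (log2 fold change 5.34 ± 0.38, adjusted p = 7.70e-08). Stab2, a scavenger receptor for hyaluronan known mainly from sinus endothelium, was read at 7.28, 10.2 and 4.94 in WT and 325, 269.6 and 383 in KO (log2 fold change 5.30 ± 0.39, adjusted p = 9.71e-08). Epor, the erythropoietin receptor, was read at 5.46, 6.35 and 0 in WT and 211, 114 and 111 in KO (log2 fold change 5.27 ± 0.72, adjusted p = 5.40e-05). All 3 genes were near the floor in WT and high in every KO library. Anpep, the surface aminopeptidase CD13, reached 979.6, 498 and 646 in KO from 23.7, 33.0 and 18.1 in WT. Other large rises were Nxpe5 (6.13 ± 0.34), Slc12a5 (5.46 ± 0.26), a potassium-chloride cotransporter best known in neurons, Adgrl3 (5.27 ± 0.42), a latrophilin, Adcy3 (5.09 ± 0.23), an adenylyl cyclase, Spon1 (4.68 ± 0.69), a matrix protein, and Treml4 (4.72 ± 0.48), a receptor of the TREM family. Without WT replicate 3 the value for Epor was 4.34, and without WT replicate 2 that for Spon1 was 3.91. All 25 of the largest rises were also called higher in KO microglia, where 21.9% of all tested genes were.

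Among the largest falls were cell junction, growth factor and matrix genes. Whrn, a scaffold protein known from sensory hair cells, was read at 692, 838 and 731 in WT and 6.4, 57.6 and 50.3 in KO (log2 fold change -4.74 ± 0.52, adjusted p = 5.73e-06). Fgf2, a growth factor for neural and vessel cells, was read at 455, 399 and 377 in WT and 4.80, 48.9 and 51.7 in KO (log2 fold change -4.05 ± 0.67, adjusted p = 0.000306). Col27a1, a fibrillar collagen, was read at 554, 594 and 468 in WT and 16.0, 52.4 and 46.0 in KO (log2 fold change -3.94 ± 0.30, adjusted p = 1.24e-07). In all 3 the groups were far apart, and KO replicate 1 was well below replicates 2 and 3. Tjp1 and F11r, which encode the tight junction proteins ZO-1 and JAM-A, were read at 1480.1, 1296 and 1622 in WT and 73.6, 332 and 203 in KO and at 785, 808 and 837 in WT and 30.4, 154 and 137 in KO. Their log2 fold changes were -3.09 ± 0.35 and -3.21 ± 0.43. Fat3, an atypical cadherin, was read at 1730.5, 1548 and 1796 in WT and 52.8, 284 and 186 in KO (log2 fold change -3.57 ± 0.40, adjusted p = 6.80e-06), and Serpine2, an inhibitor of thrombin and plasmin, at 108, 113 and 118 in WT and 4.80, 10.5 and 14.4 in KO (log2 fold change -3.50 ± 0.29, adjusted p = 3.47e-07). Spsb1, an adaptor of ubiquitin ligases known to act on TGFBR2, was read at 364, 375 and 316 in WT and 17.6, 59.3 and 77.6 in KO (log2 fold change -2.98 ± 0.37, adjusted p = 1.95e-05). No KO library of these genes reached the WT range, as the choice of the 25 falls required. Others in this group were Ifitm10 (-4.29 ± 0.78), Cfap74 (-3.45 ± 0.28), Capn3 (-3.37 ± 0.52), a calpain protease, Fry (-3.34 ± 0.40), Plxdc1 (-3.17 ± 0.38), Plxdc2 (-2.87 ± 0.21), Cxxc5 (-2.96 ± 0.32), Lhfpl2 (-2.86 ± 0.25), Sncaip (-2.83 ± 0.27), Arsb (-2.81 ± 0.11), a lysosomal sulfatase, the small GTPase regulators Arhgef40 (-2.80 ± 0.26) and Arhgap24 (-2.78 ± 0.39), Usp2 (-2.75 ± 0.28), a deubiquitinase, Siglech (-3.46 ± 0.17), a lectin of microglia and plasmacytoid dendritic cells, Pmepa1 (-3.32 ± 0.32), a TGF-beta target that sequesters SMADs, and Mmp2 (-2.75 ± 0.54), a gelatinase. Leaving out KO replicate 1 brought several of these falls closer to 0: to -3.78 for Whrn, -2.99 for Ifitm10, -3.00 for Fgf2, -2.87 for Fat3, -2.42 for Capn3, -2.60 for Fry, -2.47 for F11r, -2.52 for Plxdc1, -2.49 for Tjp1, -2.35 for Spsb1, -2.73 for Pmepa1 and -1.88 for Mmp2. A call without that library was a condition for choosing these genes, so it is no finding about them. Leaving out KO replicate 2 took Capn3 to -4.05, and leaving out KO replicate 3 took Ifitm10 to -5.24. Of the 25 falls, 24 were also called lower in KO microglia, where 20.6% of all tested genes were. The exception was Dach1, a transcription factor, which was read at 358, 286 and 253 in WT and 16.0, 37.5 and 53.9 in KO (log2 fold change -3.17 ± 0.52, adjusted p = 0.00027) and gave 1.25 ± 0.52 in microglia (adjusted p = 0.0651). The effects of the deletion on Dach1 differed between the cell origins (difference -4.42 ± 0.73, adjusted p = 0.000379).

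Receptors that recognise sugars were prominent among the rises. Of 16 C-type lectin receptor genes tested, 10 rose and 1 fell, with a median log2 fold change of 1.43. Members of the Clec4 cluster encode receptors of myeloid cells, and several of them went from a trace to a clear level. Clec4a1 was read at 30, 30.5 and 25.5 in WT and 925, 866 and 762 in KO (log2 fold change 4.84 ± 0.15, adjusted p = 2.15e-11), Clec4b1 at 4.55, 8.90 and 4.94 in WT and 166, 152 and 164 in KO (log2 fold change 4.55 ± 0.33, adjusted p = 8.83e-08), and Clec4n, which encodes the fungal receptor dectin-2, at 45.5, 39.4 and 51.0 in WT and 781, 620.4 and 579 in KO (log2 fold change 3.83 ± 0.33, adjusted p = 5.40e-07). No KO library overlapped with WT in these 3 genes. Clec4a3 was already read in WT and reached 879, 800.2 and 756 from 137, 122 and 118 (log2 fold change 2.68 ± 0.11, adjusted p = 2.66e-10). Clec9a, a receptor for actin of dead cells that otherwise marks a class of dendritic cells, was read at 3.64, 2.54 and 5.76 in WT and 57.6, 78.5 and 53.1 in KO (log2 fold change 3.72 ± 0.43, adjusted p = 1.05e-05). The mannose receptor gene Mrc1 was high in both groups, at 4220.1, 3923 and 4923 in WT and 11835, 12345 and 12365 in KO, with the KO libraries close to each other and all above WT (log2 fold change 1.49 ± 0.13, adjusted p = 4.66e-07). The fall was in Clec5a, a receptor that signals through DAP12: 375, 397 and 379 in WT and 174, 186 and 165 in KO (log2 fold change -1.13 ± 0.11, adjusted p = 1.42e-06).

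Of 16 CD300, Siglec and paired receptor genes tested, 10 rose and 3 fell, with a median log2 fold change of 1.51. Pilrb1 and Pilrb2 encode activating members of the PILR pair and were read at 7.28, 14 and 4.94 in WT and 379, 270.5 and 269 in KO for Pilrb1, and at 4.86 ± 2.09 in WT and 240.4 ± 26.1 in KO (mean ± SD, n = 3) for Pilrb2. Both were close to unread in WT, and their log2 fold changes were 5.07 ± 0.42 and 5.43 ± 0.37. They are near-identical copies, so the split of reads between them is uncertain. Pilra, the inhibitory partner, was read at 60.1, 80.1 and 105 in WT and 439, 573 and 431 in KO (log2 fold change 2.57 ± 0.18, adjusted p = 8.06e-08). Cd300ld was read at 30.9, 49.6 and 26.3 in WT and 1088, 777 and 742 in KO (log2 fold change 4.6 ± 0.29, adjusted p = 1.77e-08), Cd300lb rose by 4.11 ± 0.58, and the inhibitory receptor Cd300a by 2.01 ± 0.11. Without WT replicate 2 the rise of Cd300lb was 3.24. In all of these the lowest KO library was above the highest WT library. Cd22, an inhibitory lectin best known in B cells, was read at 96.5, 67.4 and 78.2 in WT and 552, 470.3 and 438 in KO (log2 fold change 2.59 ± 0.18, adjusted p = 7.30e-08), and Siglec1, sialoadhesin, at 2428, 2205 and 2949.7 in WT and 5388, 5018 and 4699.7 in KO (log2 fold change 1.0 ± 0.14, adjusted p = 5.81e-05). Among the falls, Cd33 went from 2527, 2594 and 2448 to 1056, 1231 and 1185 (log2 fold change -1.13 ± 0.09, adjusted p = 3.98e-07). Siglecf had no read in any KO library against 17 reads over the WT libraries, at least 5.78-fold lower against a floor of 3 reads over the group.

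Genes of MHC class II antigen presentation rose in part. Of 16 genes tested, 9 rose and 3 fell, with a median log2 fold change of 0.41. MHC class II molecules carry peptides from taken-up proteins to CD4 T cells, and their genes share promoter elements, the X box with an overlapping cAMP-response motif and the Y box, that the coactivator CIITA reads through bound factors. Promoter sequences are shown because members of this group with related promoters moved in opposite directions. Each is the 130 bases before the start of the gene in RefSeq on GRCm38.p6, 5′ to 3′ in the direction of the gene, in lower case with motif matches in capitals. The motifs searched on both strands were the Y box core GATTGG (reverse CCAATC), the X box pattern AACNGATGA, and the cAMP-response element TGACGTCA. H2-Aa lies at chr17:34287824-34287953 on the minus strand, H2-Eb1 at chr17:34305737-34305866 on the plus strand, H2-DMb1 at chr17:34153061-34153190 on the plus strand, H2-DMb2 at chr17:34145119-34145248 on the plus strand and H2-Ob at chr17:34238775-34238904 on the plus strand.
H2-Aa: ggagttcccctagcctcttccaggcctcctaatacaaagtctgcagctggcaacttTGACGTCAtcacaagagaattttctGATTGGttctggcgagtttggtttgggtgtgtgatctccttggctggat
H2-Eb1: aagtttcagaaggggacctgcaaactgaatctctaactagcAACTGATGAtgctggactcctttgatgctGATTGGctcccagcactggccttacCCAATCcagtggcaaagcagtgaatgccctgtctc
H2-DMb1: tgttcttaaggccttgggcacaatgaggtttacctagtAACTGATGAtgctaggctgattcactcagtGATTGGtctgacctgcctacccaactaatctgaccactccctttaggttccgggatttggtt
H2-DMb2: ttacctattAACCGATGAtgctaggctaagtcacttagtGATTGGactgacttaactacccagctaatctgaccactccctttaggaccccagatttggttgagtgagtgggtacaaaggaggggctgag
H2-Ob: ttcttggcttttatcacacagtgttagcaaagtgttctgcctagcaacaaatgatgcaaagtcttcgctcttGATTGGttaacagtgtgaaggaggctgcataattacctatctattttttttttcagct
Among 32851 windows of this length in the table, 10.1% held GATTGG, 1.3% held TGACGTCA, 0.262% held AACNGATGA and 9 held it together with GATTGG. The matches describe the letters in these windows and are no evidence of binding. Of 7 class II genes of the list with a promoter in the table, H2-Oa held GATTGG alone, and neither window of H2-DMa held any of the 3 motifs.

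The largest rise of this group was in Ciita, which encodes the coactivator (2.75 ± 0.21), followed by the chains that present peptides. H2-Ab1, the beta chain of I-A, gave 2.66 ± 0.11. H2-Aa, the alpha chain of I-A, was read at 1470.1, 1276 and 1207 in WT and 8101, 7698 and 6723 in KO (log2 fold change 2.51 ± 0.09, adjusted p = 1.14e-10), and H2-Eb1, the beta chain of I-E, at 1227, 1078 and 1106 in WT and 6745, 6392 and 5798 in KO (log2 fold change 2.47 ± 0.09, adjusted p = 8.78e-11). Cd74, the invariant chain that guards the groove, was read at 4862, 4313 and 4407 in WT and 24408, 22545 and 21104 in KO (log2 fold change 2.32 ± 0.09, adjusted p = 2.64e-10) and was among the 10 genes of highest mean in KO. Spread within either group was small against the gap between them. H2-DM helps to exchange the invariant chain peptide. Its chains H2-DMa (0.71 ± 0.11) and H2-DMb1 (1.68 ± 0.13) rose, while H2-DMb2 was read at 81.0, 86.4 and 87.2 in WT and 24, 31.4 and 24.4 in KO (log2 fold change -1.65 ± 0.28, adjusted p = 0.000449). H2-DMb1 and H2-DMb2 are close copies, so the opposite directions hold for the reads assigned to each and remain uncertain in that respect. H2-Ob, a chain of the inhibitor H2-DO, was read at 71.9, 103 and 99.6 in WT and 25.6, 38.4 and 27.3 in KO (log2 fold change -1.56 ± 0.23, adjusted p = 0.000107). H2-Oa, the other H2-DO chain, was not called (-1.56 ± 0.65) and was lower without KO replicate 2 (-2.33, adjusted p = 0.00891). H2-Ob was lower in each KO library than in any WT library, and its promoter window holds the Y box core as those of H2-Aa, H2-Eb1 and H2-DMb1 do. Ctss, the protease that trims the invariant chain, was read at 10620.3, 10556 and 11322 in WT and 5765, 7198 and 5747 in KO (log2 fold change -0.80 ± 0.10, adjusted p = 3.36e-05). Ifi30, a lysosomal thiol reductase, was read at 289, 285 and 312 in WT and 344, 434 and 379.9 in KO (log2 fold change 0.38 ± 0.13, adjusted p = 0.0412), and its call was lost without KO replicate 2 (adjusted p = 0.143), KO replicate 3 (0.0649) or WT replicates 1 (0.106), 2 (0.111) or 3 (0.0592). The factors that hold CIITA at the X box, Rfx5 (-0.15 ± 0.12) and Rfxank (0.08 ± 0.17), and the ubiquitin ligase March1 (0.10 ± 0.09) were not called. Rfxap (0.44 ± 0.16), another such factor, was called with all libraries and lost the call when any library other than KO replicate 2 was left out (0.37 without KO replicate 1, adjusted p = 0.121).

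Of 22 MHC class I presentation genes, 10 rose and 1 fell. H2-D1 was read at 1377, 1346 and 1418 in WT and 3437, 2955 and 2266 in KO (log2 fold change 1.04 ± 0.17, adjusted p = 0.000221) and H2-K1 at 1741, 1599 and 1957 in WT and 3633, 3434 and 2687 in KO (log2 fold change 0.87 ± 0.14, adjusted p = 0.000297). The groups did not overlap, and replicate 3 was the lowest KO library in both. The peptide-loading genes Calr (0.86 ± 0.09) and Pdia3 (0.67 ± 0.10) and the peptide transporter Tap1 (0.54 ± 0.10) rose, while the immunoproteasome genes Psmb8 (0.20 ± 0.11), Psmb9 (0.14 ± 0.12) and Psmb10 (0.31 ± 0.17) and the class I coactivator Nlrc5 (0.30 ± 0.14) were not called. The call for H2-Q6 (-0.76 ± 0.26), a near-identical member of the H2-Q family and the only fall, was lost without KO replicate 1, KO replicate 3 or any WT library, with adjusted p from 0.0575 to 0.115. Nlrc5 was called without KO replicate 1 (0.44, adjusted p = 0.0149). Of 14 costimulatory and checkpoint genes tested, 5 rose and 5 fell. Cd200r1, an inhibitory receptor, was read at 61.0, 63.5 and 58.4 in WT and 216, 187 and 174 in KO (log2 fold change 1.63 ± 0.15, adjusted p = 9.67e-07). Cd274, which encodes PD-L1, was read at 61.0, 38.1 and 76.5 in WT and 110.4, 213 and 153 in KO (log2 fold change 1.43 ± 0.24, adjusted p = 0.000407). Sirpa, the receptor of the CD47 signal, rose by 0.43 ± 0.09. Cd86, a costimulator, rose by 0.27 ± 0.08, a call lost without KO replicate 2 (adjusted p = 0.0591), WT replicate 1 (0.0557) or WT replicate 3 (0.0827). KO levels were above the WT range in these 4 genes. Tnfsf9, a TNF-family costimulator, rose by 1.26 ± 0.37, a call lost without KO replicate 1 (adjusted p = 0.079) or WT replicate 3 (0.0867). Havcr2, which encodes TIM-3, was read at 988, 982 and 895 in WT and 279, 314 and 294 in KO (log2 fold change -1.69 ± 0.10, adjusted p = 7.76e-09), Cd276, B7-H3, at 82.8, 89.0 and 75.7 in WT and 24, 11.3 and 21.5 in KO (log2 fold change -2.13 ± 0.38, adjusted p = 0.000582), and Icosl, the ICOS ligand, at 1131, 1071 and 1117 in WT and 671, 584 and 618 in KO (log2 fold change -0.83 ± 0.09, adjusted p = 6.68e-06). All 3 were lower in every KO library than in any WT library. The count of rises in this list was 3 without WT replicate 3.

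**Figure D3:**
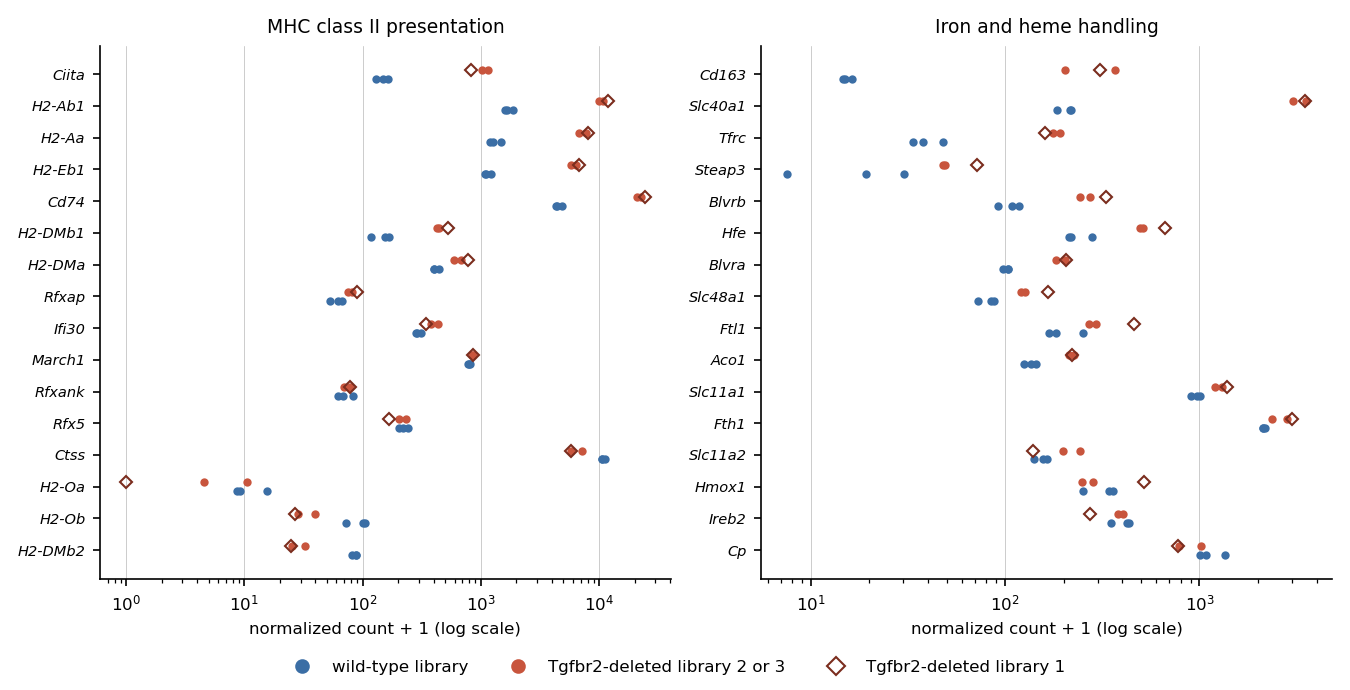
Normalized count plus 1 (log axis) of each tested gene of the MHC class II list and of the iron and heme list in the 6 macrophage libraries, with open diamonds for KO replicate 1. KO libraries lie above WT for 9 called class II genes and below it for H2-DMb2, H2-Ob and Ctss, and 11 of 16 iron and heme genes were called higher in KO.

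Interferon-stimulated genes, the antiviral program downstream of the interferon receptors, rose by modest amounts in macrophages. Of 38 tested, 19 rose and 2 fell, with a median log2 fold change of 0.72. Without KO replicate 1 the rises numbered 17. Ifitm3, which blocks entry of enveloped viruses, was read at 67.4, 54.6 and 90.5 in WT and 655, 501 and 361 in KO (log2 fold change 2.81 ± 0.22, adjusted p = 1.73e-07). Irf7, the regulator that amplifies the response, was read at 148, 123 and 164 in WT and 426, 496 and 343 in KO (log2 fold change 1.52 ± 0.32, adjusted p = 0.00225). Oas2, a sensor of double-stranded RNA, was read at 660.0, 485 and 640.3 in WT and 1499.8, 1389 and 1297 in KO (log2 fold change 1.24 ± 0.31, adjusted p = 0.0063), and Rsad2, viperin, at 71.9, 36.9 and 79.8 in WT and 213, 199 and 163 in KO (log2 fold change 1.66 ± 0.38, adjusted p = 0.00409). The groups did not overlap in these genes, and WT replicate 2 was the lowest for all 4 of them. Bst2, tetherin, moved the other way, from 401, 417 and 444 to 295, 269.6 and 245 (log2 fold change -0.64 ± 0.15, adjusted p = 0.00385), as did Eif2ak2, the RNA-activated kinase PKR (-0.48 ± 0.12). Mx1 (0.35 ± 0.22), a GTPase that blocks influenza viruses, was not called.

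The same list showed a larger effect in microglia, where all 38 tested members were called higher (against 21.9% of all tested genes) with a median of 2.95. The effect in macrophages was lower than that in microglia for 36 of 38 genes by the test of the difference itself, against 12.9% of all genes. This test compares fold changes and not levels. Levels of these genes in WT microglia are not given here, so a smaller fold change does not mean a lower level in KO macrophages. For Oas2 the log2 fold change was 7.17 ± 0.31 in microglia, and the difference was -5.93 ± 0.43 (adjusted p = 1.18e-07). For Bst2 the microglial value was 2.17 ± 0.15 and the difference -2.82 ± 0.21 (adjusted p = 1.42e-07). Of 13 interferon-inducible GTPase genes tested, 7 rose and 0 fell (limma, with 0 at an unadjusted p under 0.05). Iigp1 was read at 46.4, 16.5 and 57.6 in WT and 200.1, 336 and 213 in KO (log2 fold change 2.74 ± 0.40, adjusted p = 0.000107), Gbp8 at 126, 112 and 123 in WT and 269, 541 and 424 in KO (log2 fold change 1.71 ± 0.51, adjusted p = 0.0187) and Gbp2 at 36.4, 28.0 and 32.9 in WT and 48.0, 215 and 124 in KO (log2 fold change 1.72 ± 0.37, adjusted p = 0.0027). KO replicate 1 was the lowest KO library in these 3 and replicate 2 the highest, and 9 members rose without replicate 1. For Gbp2 the log2 fold change without it was 2.31. The call for Gbp8 was lost without KO replicate 2 (adjusted p = 0.0616) or WT replicate 2 (0.0573). Upstream, Irf1 (0.74 ± 0.11), Irf4 (1.46 ± 0.19), Jak1 (0.49 ± 0.08) and the interferon-gamma receptor chain Ifngr1 (0.36 ± 0.09) rose, and Ifnar1, a chain of the type I interferon receptor, fell from 2034, 1956 and 2149 to 1335, 1568 and 1464 (log2 fold change -0.49 ± 0.09, adjusted p = 0.00106). In microglia Ifnar1 was at 0.99 ± 0.09, and this difference between origins was called (adjusted p = 1.08e-06).

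**Figure D4:**
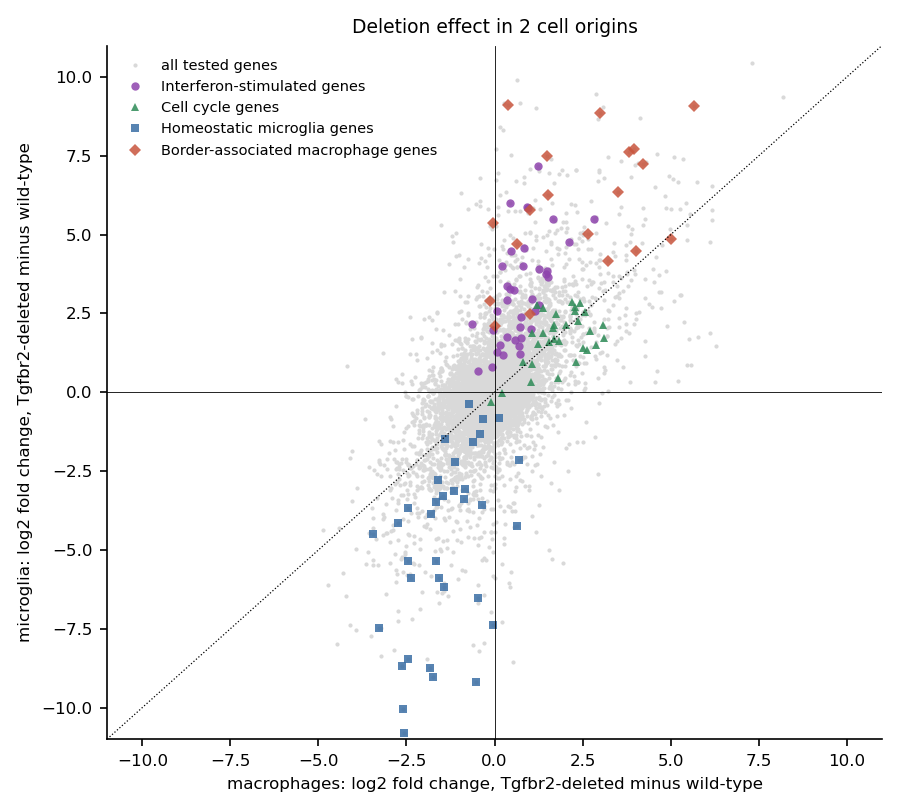
Log2 fold change of KO against WT in macrophages (horizontal axis) against that in microglia (vertical axis) for the tested genes, with 4 gene lists marked in colour. Interferon-stimulated genes lie mostly above the diagonal with a median of 2.95 in microglia against 0.72 in macrophages, and homeostatic microglia genes mostly below it with medians of -4.16 and -1.46.

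Of 16 chemokine genes tested, 9 rose and 0 fell (limma, with 0 at an unadjusted p under 0.05), with a median log2 fold change of 1.07. Chemokines draw leukocytes, and the CC ligands below act mainly on monocytes and other CCR-bearing cells. Ccl8 was read at 4.55, 0 and 2.47 in WT and 205, 112 and 127 in KO (log2 fold change 5.75 ± 0.50, adjusted p = 5.41e-07) and Ccl7 at 12.7, 3.81 and 10.7 in WT and 445, 241.7 and 213 in KO (log2 fold change 4.96 ± 0.61, adjusted p = 1.95e-05). Both are ligands of monocyte receptors and were near the floor in WT. Ccl6 was read at 44.6, 55.9 and 49.4 in WT and 649.9, 365 and 363 in KO (log2 fold change 3.12 ± 0.21, adjusted p = 4.25e-08) and Pf4, platelet factor 4, at 75.6, 76.3 and 78.2 in WT and 869, 515 and 529 in KO (log2 fold change 3.0 ± 0.29, adjusted p = 1.44e-06). Ccl2 was read at 89.2, 96.6 and 87.2 in WT and 475, 233 and 203 in KO (log2 fold change 1.62 ± 0.31, adjusted p = 0.00104) and Ccl12 at 289, 253 and 284 in WT and 688, 551 and 473 in KO (log2 fold change 1.04 ± 0.19, adjusted p = 0.000686). KO replicate 1 was the highest library in all 6 genes, and replicates 2 and 3 were also above every WT library. Ccl24, eotaxin-2, was read at 2.73, 2.54 and 5.76 in WT and 59.2, 23.6 and 14.4 in KO (log2 fold change 2.66 ± 0.44, adjusted p = 0.000324). Ccl9 was read at 25.5, 21.6 and 18.9 in WT and 132.9, 96.9 and 164 in KO (log2 fold change 2.50 ± 0.24, adjusted p = 1.96e-06), and in KO microglia it was lower instead (-1.59 ± 0.24, difference adjusted p = 5.85e-07). Ccl4 rose by 1.11 ± 0.35 with all libraries and by 0.52 without KO replicate 1, with levels of 464, 145 and 129 in the KO libraries. Its call was lost when any WT library was left out (adjusted p = 0.0543, 0.054 and 0.0831 without replicates 1, 2 and 3). Without WT replicate 2 the value for Ccl8 was 5.03. Ccl3 (0.33 ± 0.33), Cxcl10 (0.66 ± 0.32), Cxcl14 (-1.0 ± 0.53) and Cxcl16 (0.08 ± 0.07) were not called. Cxcl2 (0.88 ± 0.36) was not called with all libraries and was called without KO replicate 2 (1.22, adjusted p = 0.0214). Cxcl9, a ligand of activated T cells, was read at 3.64, 16.5 and 6.58 in WT and 0, 41.0 and 21.5 in KO. It was not called with all libraries and was higher without KO replicate 1, where it had no read (1.85, adjusted p = 0.0116).

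Receptors for these and other attractants split, with 5 rises and 3 falls among 11 tested. C5ar1, the receptor for complement fragment C5a, was read at 96.5, 73.7 and 130 in WT and 1719, 1106 and 1087 in KO (log2 fold change 3.69 ± 0.20, adjusted p = 3.99e-09). Fpr1 and Fpr2 detect bacterial formyl peptides. Fpr1 had 3 reads over the WT libraries and a ratio of 42.5 with a counting interval of 14.2 to 209, and Fpr2 gave 30.4 with 8.06 to 256. Cmklr1, the chemerin receptor, was read at 595, 586 and 608 in WT and 1165, 833 and 918 in KO (log2 fold change 0.69 ± 0.10, adjusted p = 0.000104). Cxcr4, the receptor that holds cells in CXCL12-rich niches, was read at 689, 726 and 650.2 in WT and 458, 277 and 306 in KO (log2 fold change -1.02 ± 0.17, adjusted p = 0.000332), and it rose in KO microglia (4.37 ± 0.17, difference adjusted p = 5.06e-10). Ccr2, the monocyte receptor of CCL2, was read at 206, 184 and 153 in WT and 146, 262 and 338 in KO with all libraries not called (log2 fold change 0.38 ± 0.28, adjusted p = 0.319), and without KO replicate 1 it was called at 0.72 (adjusted p = 0.0276).

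Cytokine genes also split, 10 higher and 5 lower of 26 tested. Il2rg, the common gamma chain, was read at 40.1, 67.4 and 53.5 in WT and 122, 151 and 108 in KO (log2 fold change 1.24 ± 0.25, adjusted p = 0.00148), and Il16 at 707, 663 and 688 in WT and 1104, 1026 and 934 in KO (log2 fold change 0.57 ± 0.08, adjusted p = 6.16e-05). Il10, the anti-inflammatory cytokine, had 1 read over the WT libraries, and its ratio was 62.7 with a counting interval of 10.9 to 2516. The TNF receptors Tnfrsf1a (0.64 ± 0.10) and Tnfrsf1b (0.49 ± 0.08) rose, as did Il18bp (0.93 ± 0.20), the decoy of IL-18. Among the falls, Tnfsf13b, the B cell survival factor BAFF, was read at 151, 139.8 and 148.97 in WT and 14.4, 62.8 and 31.6 in KO (log2 fold change -2.22 ± 0.35, adjusted p = 0.00022), Tnfsf8, the CD30 ligand, at 198, 184 and 193 in WT and 24, 82.0 and 53.9 in KO (log2 fold change -1.99 ± 0.44, adjusted p = 0.00319), and Il1a at 312, 324 and 258 in WT and 94.4, 129 and 128 in KO (log2 fold change -1.35 ± 0.14, adjusted p = 4.22e-06). KO replicate 1 was the lowest library in all 3. Il1b (-0.27 ± 0.37) was not called. Of 6 colony-stimulating factor receptors, 4 fell. The falls included Csf3r, the G-CSF receptor, at 1169.7, 1118 and 1096 in WT and 568, 631 and 582 in KO (log2 fold change -0.93 ± 0.09, adjusted p = 2.32e-06) and Csf1r at 13332, 12771 and 14089 in WT and 10106, 10162 and 9667 in KO (log2 fold change -0.42 ± 0.10, adjusted p = 0.00354). After rescaling to total reads 8 cytokine genes were lower instead of 5.

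Complement and Fc receptor genes rose broadly. Of 16 complement genes tested, 10 rose and 2 fell. C4b, which tags surfaces in the classical pathway, was read at 47.3, 24.1 and 28.0 in WT and 1279, 749.5 and 909 in KO (log2 fold change 4.87 ± 0.50, adjusted p = 3.17e-06). Cd93, a receptor that aids clearance of dead cells, was read at 483, 533 and 464 in WT and 4328, 3478 and 3225 in KO (log2 fold change 2.89 ± 0.32, adjusted p = 7.81e-06). Cd55, which protects cells from complement, was read at 2.73, 3.81 and 0 in WT and 20.8, 74.2 and 58.9 in KO (log2 fold change 4.14 ± 0.60, adjusted p = 9.28e-05). The groups were far apart in each, and the value for Cd55 was 3.44 without WT replicate 3. The chains of C1q, the starter of the pathway and among the most abundant macrophage transcripts, rose slightly. C1qb was read at 4428, 4664 and 4188 in WT and 9949.5, 6283 and 5945 in KO (log2 fold change 0.70 ± 0.15, adjusted p = 0.00234), and KO replicate 1 was the highest in C1qa (0.43 ± 0.13), C1qb and C1qc (0.57 ± 0.14). Without it the log2 fold changes were 0.24, 0.47 and 0.37. The call for C1qa was lost without WT replicate 1 (adjusted p = 0.0546) or WT replicate 3 (0.0656). Cr1l, a regulator, fell (-0.41 ± 0.11).

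Of 13 Fc receptor genes and partners, 8 rose and 2 fell. Fcgrt, the neonatal Fc receptor that recycles IgG, was read at 61.9, 72.4 and 70.0 in WT and 1103, 681 and 690.2 in KO (log2 fold change 3.54 ± 0.16, adjusted p = 5.77e-10). Fcgr4, an activating IgG receptor, was read at 59.2, 45.8 and 60.1 in WT and 642, 589 and 475 in KO (log2 fold change 3.35 ± 0.14, adjusted p = 3.12e-10), and Fgr, a Src-family kinase downstream, at 20, 38.1 and 18.1 in WT and 106, 137 and 204 in KO (log2 fold change 2.53 ± 0.31, adjusted p = 1.76e-05). KO libraries exceeded all WT libraries by wide margins in these 3 genes. Fcgr2b, the inhibitory receptor, rose by 1.63 ± 0.08, more in microglia (2.15 ± 0.08, difference adjusted p = 0.00335). For Fcgrt the order of origins was reversed, with 2.07 ± 0.16 in microglia and a difference of 1.47 ± 0.22 (adjusted p = 0.000163). Fcrls, a microglial Fc receptor-like gene, was read at 5667, 5630.1 and 5806 in WT and 2329, 2092 and 2058 in KO (log2 fold change -1.40 ± 0.16, adjusted p = 9.75e-06), and Inpp5d, the phosphatase SHIP1 that damps these receptors, at 4302, 4557 and 4341 in WT and 1807, 2238 and 2284 in KO (log2 fold change -1.07 ± 0.09, adjusted p = 6.91e-07).

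Of 16 iron and heme genes tested, 11 rose and 0 fell (limma, with 0 at an unadjusted p under 0.05), with a median log2 fold change of 0.74. Macrophages take up iron and heme from aged cells and return iron through ferroportin. Slc40a1, the ferroportin gene, was read at 183, 215 and 218.1 in WT and 3478, 3532 and 3027 in KO (log2 fold change 4.02 ± 0.12, adjusted p = 2.15e-11). Tfrc, the transferrin receptor, was read at 32.8, 47.0 and 37.0 in WT and 160.1, 191 and 175 in KO (log2 fold change 2.15 ± 0.17, adjusted p = 2.25e-07), and Hfe, which binds it, at 217.6, 278 and 212 in WT and 661, 514 and 496 in KO (log2 fold change 1.24 ± 0.13, adjusted p = 4.70e-06). Blvrb and Blvra reduce the products of heme breakdown and were read at 108, 91.5 and 116.9 in WT and 328, 273 and 242.02 in KO and at 102, 96.6 and 102 in WT and 206, 202.4 and 181 in KO. None of these groups overlapped, and KO replicate 1 was the highest library for Hfe, Blvrb and Blvra. Their log2 fold changes were 1.40 ± 0.20 and 0.96 ± 0.17. Spic, the transcription factor that marks iron-recycling macrophages of the spleen, was read at 44.6, 36.9 and 35.4 in WT and 322, 328 and 281 in KO (log2 fold change 2.97 ± 0.41, adjusted p = 5.60e-05). Slc48a1, a heme transporter (0.75 ± 0.19), Ftl1, the ferritin light chain (0.74 ± 0.19), Slc11a1 (0.43 ± 0.08), Aco1 (0.71 ± 0.10) and Steap3 (1.75 ± 0.46) rose as well. Hmox1 (0.08 ± 0.24), the heme oxygenase, Fth1 (0.35 ± 0.13), Cp (-0.42 ± 0.29), Ireb2 (-0.21 ± 0.13) and Slc11a2 (0.31 ± 0.17) were not called. Slc11a2, an iron importer, was called without KO replicate 1 (0.52, adjusted p = 0.00955), and Fth1, the ferritin heavy chain, without KO replicate 3 (0.45, adjusted p = 0.0183). The rises of Slc40a1 and Tfrc were larger than in microglia, with differences of 1.69 ± 0.17 (adjusted p = 3.15e-06) and 1.60 ± 0.24 (adjusted p = 0.000183).

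Lipid handling genes included 10 rises and 4 falls among 20 tested. The falls were in Apoe, Soat1, Npc1 and Ppard. Apoe, by far the most abundant gene of this list, averaged 129838 ± 8565 in WT and 90084 ± 9529.7 in KO (mean ± SD). Pparg, a lipid-sensing nuclear receptor, was read at 9.10, 8.90 and 8.23 in WT and 166, 154 and 168 in KO (log2 fold change 4.07 ± 0.24, adjusted p = 1.14e-08), and Pltp, which moves phospholipids onto lipoproteins, at 93.8, 109 and 102 in WT and 2177, 1366 and 1469 in KO (log2 fold change 4.0 ± 0.19, adjusted p = 1.33e-09). Nr1h3, which encodes the oxysterol receptor LXR-alpha, was read at 10, 17.8 and 8.23 in WT and 60.8, 57.6 and 67.5 in KO (log2 fold change 2.34 ± 0.58, adjusted p = 0.00677). Abcg1 and Abca1, cholesterol exporters among its target genes, were read at 689, 585 and 759.7 in WT and 1983, 2060.2 and 2098 in KO and at 8863, 7737 and 10082 in WT and 13986, 14068 and 15833 in KO. All KO libraries were above all WT libraries in these genes. The log2 fold changes were 1.60 ± 0.12 and 0.72 ± 0.13. Plin2, a coat protein of lipid droplets, rose by 1.45 ± 0.20. Of 17 cholesterol and fatty acid synthesis genes, 4 rose, and these were Scd2 (1.14 ± 0.15), Fasn (1.09 ± 0.14), Srebf1 (1.03 ± 0.17) and Dhcr7 (0.70 ± 0.22). The number that fell was 0 (limma, with 0 at an unadjusted p under 0.05), and the sterol regulator Srebf2 (0.10 ± 0.13) was not called. The call for Dhcr7 was lost without KO replicate 2 (adjusted p = 0.0746), KO replicate 3 (0.0646), WT replicate 1 (0.0963) or WT replicate 2 (0.0961). Scd2 was at -0.29 ± 0.15 in microglia, and the difference was called (adjusted p = 0.000164).

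Lysosomal genes rose for 15 of 26 tested and fell for 4. Ctsb, cathepsin B, was read at 6288, 6315 and 6219.6 in WT and 18396, 12967 and 11528 in KO (log2 fold change 1.16 ± 0.13, adjusted p = 1.09e-05), and Psap, the precursor of lipid-degrading cofactors, at 6859, 6367 and 7582 in WT and 12754, 13063 and 10965 in KO (log2 fold change 0.82 ± 0.10, adjusted p = 1.26e-05). Atp6v1a, a proton pump subunit, was read at 202.1, 160.1 and 222 in WT and 448, 422 and 421 in KO (log2 fold change 1.15 ± 0.13, adjusted p = 9.73e-06), and Lipa, the acid lipase, at 426, 411 and 433 in WT and 959, 969 and 791 in KO (log2 fold change 1.09 ± 0.09, adjusted p = 4.41e-07). KO levels were higher in every library. Ctsd, cathepsin D, went the other way, from 13606, 13464 and 13691 to 5543, 5462 and 4953 (log2 fold change -1.35 ± 0.08, adjusted p = 1.92e-08). Of 16 scavenger receptor genes, 7 rose and 3 fell. Scarb1, a receptor for high-density lipoprotein, was read at 97.4, 100.4 and 81.5 in WT and 408, 398 and 473 in KO (log2 fold change 2.18 ± 0.15, adjusted p = 4.94e-08), Gas6, the bridge to dead cells, at 347, 348 and 346 in WT and 1546, 1258 and 1257 in KO (log2 fold change 1.95 ± 0.14, adjusted p = 5.32e-08), and Msr1, scavenger receptor A, at 414, 418 and 467 in WT and 1356, 1139.6 and 1338 in KO (log2 fold change 1.56 ± 0.16, adjusted p = 2.34e-06). These were higher in all KO libraries, whereas Trem2, a lipid-sensing receptor, was read at 2115, 2227 and 2053 in WT and 823, 668 and 614 in KO (log2 fold change -1.61 ± 0.11, adjusted p = 5.85e-08). Axl, a receptor for cells bearing GAS6, was not called (-0.02 ± 0.23), and it rose by 4.55 ± 0.23 in microglia (difference adjusted p = 1.05e-07).

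Genes of the disease-associated state of microglia, drawn from that cell type, were called higher for 13 of 23 and lower for 4. Leaving out KO replicate 1, 11 were higher and 4 lower. Lgals3, galectin-3, was read at 51.0, 49.6 and 57.6 in WT and 968, 523 and 529 in KO (log2 fold change 3.59 ± 0.24, adjusted p = 2.99e-08), and Igf1, a growth factor, at 259, 259 and 299 in WT and 991, 1046 and 1059 in KO (log2 fold change 1.92 ± 0.20, adjusted p = 3.50e-06). Both were higher in all KO libraries. Cd9 was read at 209, 172 and 193 in WT and 48.0, 88.1 and 102 in KO (log2 fold change -1.32 ± 0.22, adjusted p = 0.000275). Spp1 (0.61 ± 0.51) and Itgax (-0.50 ± 0.30), other markers of that state, were not called.

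Cell cycle genes rose as a group. Of 31 tested, 28 rose and 0 fell (limma, with 0 at an unadjusted p under 0.05), with a median log2 fold change of 1.81. Without KO replicate 1, 25 rose. Mki67, the proliferation marker, was read at 170.2, 233 and 197 in WT and 2026, 887 and 904 in KO (log2 fold change 2.56 ± 0.31, adjusted p = 1.39e-05), and Top2a, which untangles replicated DNA, at 41.0, 57.2 and 52.7 in WT and 355, 211 and 194 in KO (log2 fold change 2.27 ± 0.37, adjusted p = 0.000262). Kif11, a spindle motor, was read at 10.9, 25.4 and 9.05 in WT and 139, 62.8 and 53.1 in KO (log2 fold change 2.42 ± 0.52, adjusted p = 0.00259), and Ccna2, cyclin A2, at 5.46, 3.81 and 6.58 in WT and 75.2, 29.7 and 38.8 in KO (log2 fold change 2.87 ± 0.36, adjusted p = 2.47e-05). KO replicate 1 was the highest library for all 4, and replicates 2 and 3 were also above every WT library. Without replicate 1 the log2 fold changes were 2.17, 2.0, 2.0 and 2.50, all called. The replication licensing genes Mcm2 (0.82 ± 0.20), Mcm5 (1.24 ± 0.26) and Mcm6 (1.07 ± 0.23) rose less, and Mcm3 (-0.10 ± 0.13) and Tyms (0.22 ± 0.24) were not called. The test of the difference from microglia called 1 of the 31 genes, Cenpe. Of 12 replication-dependent histone genes, 10 rose and 0 fell (limma, with 0 at an unadjusted p under 0.05). The linker histone genes Hist1h1c and Hist1h1e were read at 51.9, 52.1 and 56.0 in WT and 181, 150.1 and 111 in KO and at 63.7, 72.4 and 69.1 in WT and 227, 163 and 148.7 in KO, with log2 fold changes of 1.42 ± 0.16 and 1.36 ± 0.17. The histone rises numbered 6 without KO replicate 1 or without WT replicate 2. Among cyclins D and inhibitors, Ccnd3 fell from 518, 827 and 551 to 198, 253 and 386 (log2 fold change -1.20 ± 0.29, adjusted p = 0.00616), and Cdkn1b (0.48 ± 0.11), Cdkn2c (1.23 ± 0.33) and Cdkn1a (1.5 ± 0.37) rose.

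Transcription factors of macrophage identity fell more often than they rose, 10 against 5 of 29 tested, or 12 against 5 without KO replicate 1. Runx2 was read at 122, 116 and 129 in WT and 19.2, 27.9 and 43.8 in KO (log2 fold change -2.05 ± 0.30, adjusted p = 8.82e-05), Runx3, a partner of SMADs in T cells, at 527, 519.8 and 432 in WT and 112, 175 and 197 in KO (log2 fold change -1.64 ± 0.40, adjusted p = 0.00602), and Bach2, a repressor of effector genes, at 339.5, 397 and 349 in WT and 131, 123 and 127 in KO (log2 fold change -1.50 ± 0.10, adjusted p = 4.02e-08). Mef2a, part of the microglial enhancer program, was read at 3744, 3688 and 3735 in WT and 1074, 1573 and 1538 in KO (log2 fold change -1.44 ± 0.11, adjusted p = 2.00e-07). The KO libraries were below all WT libraries in each. Runx3 rose in KO microglia (1.34 ± 0.40), and the difference was called (adjusted p = 0.00119). Tfec, a relative of the lysosomal regulator TFEB, was read at 26.4, 34.3 and 23 in WT and 232, 185 and 217.6 in KO (log2 fold change 2.89 ± 0.23, adjusted p = 2.02e-07), and Maf, c-MAF, at 3543, 3806 and 3769 in WT and 6665, 6447 and 6166 in KO (log2 fold change 0.79 ± 0.08, adjusted p = 3.90e-06). Both were higher in every KO library. The myeloid regulator Spi1, which encodes PU.1, was not called (0.18 ± 0.09). Sall1, which specifies microglia among CNS macrophages, was low in both groups, at 11.8, 7.63 and 2.47 in WT and 19.2, 8.73 and 6.46 in KO (log2 fold change 0.64 ± 0.39, adjusted p = 0.222).

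Nuclear receptors rose for 5 and fell for 6 of 18 tested. Rara, a retinoic acid receptor, was read at 41.0, 38.1 and 59.3 in WT and 174, 192 and 200.4 in KO (log2 fold change 2.04 ± 0.20, adjusted p = 2.03e-06), Thra, a thyroid hormone receptor, at 71.9, 73.7 and 74.9 in WT and 138, 151 and 152 in KO (log2 fold change 0.99 ± 0.13, adjusted p = 2.82e-05), and Rxra, the shared partner, at 267, 191 and 221 in WT and 365, 379 and 364 in KO (log2 fold change 0.72 ± 0.12, adjusted p = 0.000307). The KO libraries lay above WT in all 3. Ppard fell from 314, 374 and 327 to 165, 181 and 175 (log2 fold change -0.96 ± 0.11, adjusted p = 1.39e-05), opposite to Pparg. The number of falls was 3 when KO replicate 1, KO replicate 2 or any WT library was left out. The calls lost were those of Rora (-0.49 ± 0.18), Rxrb (-0.37 ± 0.13) and Nr2c2 (-0.34 ± 0.11) without KO replicate 1 (adjusted p = 0.125, 0.168 and 0.0743) or WT replicate 1 (0.116, 0.156 and 0.0849). Rora, the circadian repressor Nr1d2 (-0.61 ± 0.19) and the immediate-early Nr4a3 (-1.26 ± 0.38) lost theirs without KO replicate 2 (0.0923, 0.0983 and 0.0781). Rxrb, Nr1d2 and Nr4a3 lost theirs without WT replicate 2 (0.0999, 0.11 and 0.0754), and Rora, Nr2c2 and Nr1d2 without WT replicate 3 (0.196, 0.0681 and 0.0634). Among pattern receptors, 6 rose and 5 fell of 23, beside 16.0% and 15.4% of all tested genes. Tlr5, the flagellin receptor, was read at 46.4, 43.2 and 44.4 in WT and 325, 217 and 226.2 in KO (log2 fold change 2.47 ± 0.16, adjusted p = 2.93e-08), and Nod1, a sensor of peptidoglycan, at 169, 139 and 133.3 in WT and 386, 520.1 and 459.6 in KO (log2 fold change 1.62 ± 0.13, adjusted p = 1.87e-07). Nlrp1b was read at 1329, 1279 and 1192 in WT and 403, 745 and 722 in KO (log2 fold change -1.07 ± 0.18, adjusted p = 0.000277), and Aim2, a DNA sensor, at 607, 543 and 577 in WT and 238, 339 and 314 in KO (log2 fold change -0.97 ± 0.11, adjusted p = 9.90e-06). The first pair was higher and the second pair lower in all KO libraries. In the NF-kappa B list Traf1 was read at 35.5, 17.8 and 18.1 in WT and 129.7, 123 and 119.9 in KO (log2 fold change 2.41 ± 0.33, adjusted p = 5.81e-05) and Rel at 813, 672 and 825 in WT and 343, 503 and 532 in KO (log2 fold change -0.76 ± 0.14, adjusted p = 0.000735). The list gave 2 rises and 4 falls among 18 genes, close to the 31.4% called over all tested genes. The rises numbered 4 without KO replicate 3.

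Protease and matrix genes changed in both directions. Of 10 matrix metalloproteinase and inhibitor genes tested, 5 rose and 3 fell, and of 11 ADAM and ADAMTS genes 4 rose and 3 fell. Adam22, a catalytically inactive ADAM protein best known at synapses, was read at 58.3, 63.5 and 64.2 in WT and 506, 595 and 602 in KO (log2 fold change 3.17 ± 0.10, adjusted p = 5.09e-11), and Adam8 at 21.8, 28.0 and 21.4 in WT and 144, 54.1 and 51.7 in KO (log2 fold change 1.61 ± 0.40, adjusted p = 0.00617). Adamts10 (-0.87 ± 0.11) and the sheddase Adam10 (-0.53 ± 0.10) fell. Of 10 matrix protein genes, 3 rose and 3 fell. Fn1, fibronectin, was read at 13.7, 17.8 and 17.3 in WT and 96.0, 48.9 and 86.9 in KO (log2 fold change 2.13 ± 0.29, adjusted p = 4.36e-05), and Nid2, a basement membrane linker, at 20, 15.3 and 10.7 in WT and 78.4, 93.4 and 116 in KO (log2 fold change 2.59 ± 0.28, adjusted p = 5.83e-06). Both were higher in all KO libraries, and Sparc fell from 72.8, 52.1 and 37.9 to 22.4, 11.3 and 12.9 (log2 fold change -1.75 ± 0.30, adjusted p = 0.000469). Of 14 integrin chains, 5 fell and 3 rose. Itga6, the laminin receptor chain, was read at 3016, 2876 and 2988 in WT and 666, 908 and 976 in KO (log2 fold change -1.82 ± 0.13, adjusted p = 4.94e-08), and Itga9, a tenascin receptor chain, at 955, 775 and 984 in WT and 2309.7, 2659 and 2789 in KO (log2 fold change 1.52 ± 0.11, adjusted p = 5.63e-08). Itgb1, the shared beta1 chain, was read at 909, 868 and 1030.4 in WT and 1815, 1865 and 1594 in KO (log2 fold change 0.91 ± 0.10, adjusted p = 9.35e-06). Itga4, which homing monocytes use and which marks marrow-derived cells in the CNS, was not called (2091, 2092 and 2118 in WT and 1857, 2113 and 2133 in KO, log2 fold change -0.05 ± 0.14, adjusted p = 0.826), and it rose by 5.28 ± 0.14 in KO microglia. Of 15 tetraspanin genes, 5 rose and 4 fell, with Tspan13 at 105, 102 and 97.9 in WT and 280.1, 274 and 269 in KO (log2 fold change 1.43 ± 0.10, adjusted p = 8.83e-08), Cd81 at 1054, 1000.2 and 1230.4 in WT and 2502, 2054 and 1827 in KO (log2 fold change 0.95 ± 0.11, adjusted p = 7.85e-06) and Cd37 at 617, 707 and 579 in WT and 259, 194 and 192 in KO (log2 fold change -1.56 ± 0.13, adjusted p = 3.47e-07).

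Growth factor and guidance genes were changed as well. Of 14 growth factor genes tested, 6 rose and 2 fell. Pdgfc, a platelet-derived growth factor, was read at 19.1, 20.3 and 14.8 in WT and 267, 236 and 205 in KO (log2 fold change 3.64 ± 0.22, adjusted p = 1.30e-08). Bmp2, a ligand of the sister pathway of TGF-beta, was read at 14.6, 14 and 14.8 in WT and 241.7, 85.5 and 81.2 in KO (log2 fold change 2.96 ± 0.35, adjusted p = 1.39e-05), and Gdf15, a stress-induced member of the same family, at 4.55, 6.35 and 4.94 in WT and 165, 40.1 and 42.4 in KO (log2 fold change 3.42 ± 0.45, adjusted p = 3.47e-05). KO replicate 1 was the highest library in all 3, and replicates 2 and 3 were also above WT. Without it Bmp2 stood at 2.45 and Gdf15 at 2.76, both called. Of 16 axon guidance genes, 7 rose and 3 fell. Sema6d, a semaphorin, was read at 283, 327 and 272 in WT and 1732, 1789 and 1898 in KO (log2 fold change 2.62 ± 0.41, adjusted p = 0.00019), Plxnd1, a semaphorin receptor, at 135, 168 and 148 in WT and 509, 511 and 554 in KO (log2 fold change 1.80 ± 0.15, adjusted p = 3.24e-07), and Nrp2, neuropilin-2, at 168, 166 and 176 in WT and 595, 525 and 581 in KO (log2 fold change 1.73 ± 0.10, adjusted p = 5.69e-09). Epha2, an ephrin receptor, was read at 103, 86.4 and 119 in WT and 11.2, 24.4 and 23.7 in KO (log2 fold change -2.39 ± 0.29, adjusted p = 1.44e-05), and Sema4c at 539, 492 and 591 in WT and 123, 190.2 and 189 in KO (log2 fold change -1.71 ± 0.15, adjusted p = 6.23e-07). The rises and falls held in each KO library. Plxna4 rose from 256, 245 and 309 to 715, 573 and 525 (log2 fold change 1.15 ± 0.12, adjusted p = 3.08e-06).

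Of 18 glycolysis and lactate export genes, 6 rose and 5 fell. Members of the same step moved both ways, with Hk2 lower and Hk1 higher among the hexokinases. Hk2, hexokinase 2, was read at 1168, 1226 and 1365 in WT and 491, 510.5 and 498 in KO (log2 fold change -1.32 ± 0.08, adjusted p = 2.26e-08), and Slc2a1, glucose transporter 1, at 116.5, 151 and 110.3 in WT and 32, 75.0 and 56.0 in KO (log2 fold change -1.27 ± 0.24, adjusted p = 0.00101). Pfkfb3, which makes the activator of phosphofructokinase, was read at 799, 742 and 817 in WT and 343, 509 and 439.5 in KO (log2 fold change -0.89 ± 0.12, adjusted p = 6.61e-05). All KO libraries were below WT in these 3 genes. The rises were in Slc16a1 (1.52 ± 0.26), a lactate transporter, Pfkp (1.05 ± 0.29), Ldha (0.76 ± 0.15), Aldoa (0.45 ± 0.13), Pkm (0.41 ± 0.12) and Hk1 (0.36 ± 0.12), and their number was 3 after rescaling to total reads or without WT replicate 2. The calls lost were Aldoa, Pkm and Hk1 after that rescaling (adjusted p = 0.06, 0.0714 and 0.0781) and without WT replicate 2 (0.0504, 0.0776 and 0.0942), Pkm and Hk1 without KO replicate 1 (0.0692 and 0.0766), Hk1 without WT replicate 1 (0.0672), and Pfkp without KO replicate 2 (0.0523) or WT replicate 3 (0.0558). Of 21 nuclear genes of oxidative phosphorylation, 8 rose and 0 fell (limma, with 0 at an unadjusted p under 0.05), with Atp5a1 at 429.7, 451 and 501 in WT and 707, 714 and 657 in KO (log2 fold change 0.59 ± 0.09, adjusted p = 0.000135). The rises of this list numbered 6 without KO replicate 1. The share of reads in mitochondrial protein-coding transcripts was 0.315%, 0.28% and 0.365% in WT and 0.333%, 0.44% and 0.375% in KO (two-sided exact permutation p = 0.2, where 0.1 is the smallest possible). Of 8 such transcripts tested one by one, 2 rose, and 5 rose without KO replicate 1. Amino acid transporters fell for 6 and rose for 3 of 14, with Slc7a8 at 1192, 1168 and 1284 in WT and 555, 709 and 691 in KO (log2 fold change -0.90 ± 0.11, adjusted p = 1.36e-05) and Slc43a2 at 911, 844 and 926 in WT and 1301, 1428 and 1452 in KO (log2 fold change 0.64 ± 0.07, adjusted p = 9.30e-06). In oxidative defence, 7 of 17 genes rose and 3 fell, or 5 rose and 3 fell without KO replicate 1. Gpx1, glutathione peroxidase, was read at 177, 164 and 176 in WT and 683, 365 and 369 in KO (log2 fold change 1.39 ± 0.19, adjusted p = 4.30e-05), while Ncf1, the p47 subunit of the NADPH oxidase, was read at 1450.1, 1601 and 1571 in WT and 443, 553 and 479 in KO (log2 fold change -1.65 ± 0.10, adjusted p = 1.06e-08). Of 13 prostaglandin and leukotriene genes, 6 fell and 1 rose. Alox5, 5-lipoxygenase, was read at 173, 158 and 165 in WT and 96.0, 61.1 and 57.5 in KO (log2 fold change -1.23 ± 0.18, adjusted p = 0.000108), and its partner Alox5ap rose (0.62 ± 0.18), a call that was lost without WT replicate 2.

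Receptors of nucleotides and orphan ligands fell more than they rose. Of 12 purinergic genes, 5 fell and 2 rose. P2ry12, the ADP receptor of microglial processes, was read at 1279.9, 1327 and 1453 in WT and 415, 450.3 and 405 in KO (log2 fold change -1.67 ± 0.12, adjusted p = 4.88e-08), and P2ry14, the UDP-glucose receptor, at 81.0, 64.8 and 65.8 in WT and 189, 283 and 292 in KO (log2 fold change 1.82 ± 0.29, adjusted p = 0.000232). The falls of the first and the rises of the second had no overlap between groups. P2ry6 rose (0.62 ± 0.13). Of 21 adhesion and orphan receptor genes, 9 fell and 4 rose. Adgre5, CD97, was read at 59.2, 95.3 and 61.7 in WT and 1626, 1219 and 1166 in KO (log2 fold change 4.21 ± 0.25, adjusted p = 1.37e-08). Gpr183, an oxysterol-guided migration receptor, was read at 539.8, 475 and 574 in WT and 235, 203 and 167 in KO (log2 fold change -1.40 ± 0.13, adjusted p = 8.01e-07), and S1pr1, the sphingosine phosphate receptor, at 349, 341 and 370.4 in WT and 179, 170.2 and 126 in KO (log2 fold change -1.17 ± 0.14, adjusted p = 1.49e-05). No groups overlapped. Gpr165 had no read in any KO library and was at least 31.3-fold lower than in WT, against a floor of 3 reads over the group. Among channels, 5 of 19 fell and 4 rose, beside 15.4% and 16.0% of all tested genes. Kcnd1, a potassium channel, was read at 90.1, 85.2 and 81.5 in WT and 11.2, 20.9 and 11.5 in KO (log2 fold change -2.53 ± 0.35, adjusted p = 6.16e-05), Cacna1d, a calcium channel, at 1196, 1144 and 1039 in WT and 263, 421 and 506 in KO (log2 fold change -1.55 ± 0.17, adjusted p = 6.09e-06), and Trpv4, an osmotically gated channel, at 122, 155 and 174 in WT and 389, 344 and 334 in KO (log2 fold change 1.25 ± 0.18, adjusted p = 0.000105). The number of channel genes that rose was 2 without KO replicate 3, WT replicate 2 or WT replicate 3.

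Genes of homeostatic microglia fell for 28 of 35 tested and rose for 1, with a median of -1.46. WT macrophages carried part of this program, and some genes that separate microglia from other macrophages were low in them already. Rtn4rl1, a Nogo receptor relative, was read at 326, 287 and 336 in WT and 28.8, 66.3 and 53.1 in KO (log2 fold change -2.73 ± 0.23, adjusted p = 4.82e-07), and Rapgef5, a Rap activator, at 449, 459 and 429.6 in WT and 60.8, 100.3 and 84.7 in KO (log2 fold change -2.46 ± 0.18, adjusted p = 1.20e-07). Golm1 was read at 1062, 1082 and 1106 in WT and 136, 257 and 266 in KO (log2 fold change -2.36 ± 0.20, adjusted p = 4.12e-07), and Rnase4 at 1368, 1441 and 1293 in WT and 381, 492 and 424 in KO (log2 fold change -1.66 ± 0.11, adjusted p = 4.59e-08). All KO libraries were below all WT libraries for each of them. Selplg, the selectin ligand, fell less, from 832, 925 and 825 to 714, 636 and 662 (log2 fold change -0.36 ± 0.08, adjusted p = 0.00315). The effect in microglia was -3.58 ± 0.08, and the difference was called (adjusted p = 3.50e-11). Border-associated macrophage genes, typical of meninges and perivascular spaces, rose for 14 of 19 and fell for 0 (limma, with 0 at an unadjusted p under 0.05), with a median of 2.66. F13a1, a coagulation factor, was read at 107, 107 and 171 in WT and 1361, 1302 and 1636 in KO (log2 fold change 3.50 ± 0.20, adjusted p = 1.06e-08), Folr2, folate receptor beta, at 1.82, 6.35 and 12.3 in WT and 232, 68.1 and 74.7 in KO (log2 fold change 4.03 ± 0.53, adjusted p = 3.59e-05), and Cbr2, a carbonyl reductase, at 2.73, 16.5 and 8.23 in WT and 487, 205 and 197 in KO (log2 fold change 5.0 ± 0.51, adjusted p = 3.13e-06). Dab2, an endocytic adaptor, was read at 2299, 2175 and 2152 in WT and 6441, 6071 and 6439.8 in KO (log2 fold change 1.52 ± 0.13, adjusted p = 4.41e-07). The groups did not overlap, and without WT replicate 1 the values for Folr2 and Cbr2 were 3.43 and 4.41. Ms4a7 (0.39 ± 0.31) and Ms4a6c (-0.12 ± 0.10) were not called. They were high already in WT macrophages, where Ms4a7 stood at 2005, 1853 and 2044. In the fit of the 6 macrophage libraries alone, Ms4a7 was called higher (0.39, adjusted p = 0.00796).

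The effect of the deletion differed between macrophages and microglia for 3235 genes (25.8%). Of these, 257 (2.05% of tested genes) were called in opposite directions, 137 higher in KO macrophages and lower in KO microglia and 120 the reverse. The genes named here from that set were chosen after their values were seen. Pecam1, the adhesion molecule CD31, was read at 19.1, 7.63 and 13.2 in WT and 80, 116.9 and 112 in KO (log2 fold change 2.93 ± 0.30, adjusted p = 3.36e-06), against -2.59 ± 0.30 in microglia. Myo6, an endocytic myosin, was read at 1.82, 0 and 2.47 in WT and 6.4, 7.85 and 5.75 in KO (log2 fold change 1.83 ± 0.42, adjusted p = 0.00364), against -3.09 ± 0.42. In macrophages of both genotypes Myo6 stayed below the level of the filter, which it passed on its microglial values. The rise of Myo6 in macrophages thus rests on few reads near the floor. Jag1, a Notch ligand, was read at 293, 255 and 291 in WT and 57.6, 102 and 122 in KO (log2 fold change -1.63 ± 0.47, adjusted p = 0.0156), against 2.56 ± 0.47. Lrrk2, a kinase linked to lysosomes, was read at 118, 121 and 102 in WT and 19.2, 34.9 and 30.9 in KO (log2 fold change -2.01 ± 0.53, adjusted p = 0.00982), against 2.32 ± 0.53. The call for Jag1 in macrophages was lost without KO replicate 1 (adjusted p = 0.0511) or WT replicate 1 (0.0524). Each difference between origins was called, with adjusted p of 2.44e-07, 1.89e-05, 0.000256 and 0.000564. These genes changed in every KO macrophage library in the same direction. Since the 2 contrasts use separate WT libraries, the comparison of origins shares no control.

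**Figure D5:**
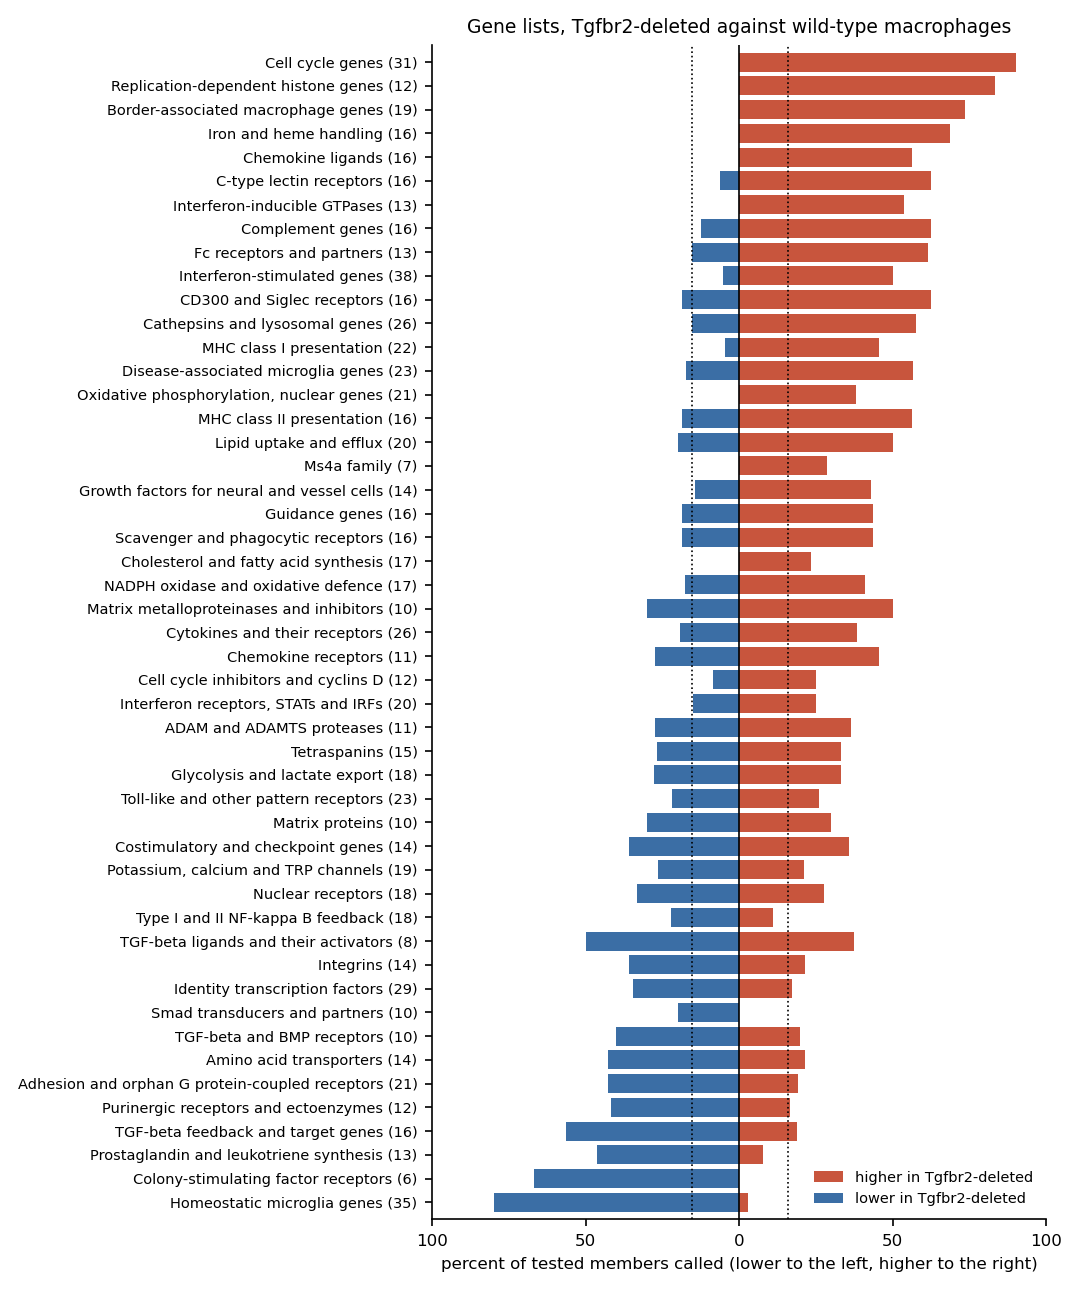
Percent of tested members of each gene list, marker lists left out, that were called higher (right, red) or lower (left, blue) in KO macrophages, with dotted lines at the background of 16.0% and 15.4% of all tested genes. Cell cycle, histone and border-associated macrophage genes extend furthest to the right, and homeostatic microglia genes furthest to the left.

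Markers of other cells and of sample handling were examined too. Of 9 neuronal genes that passed the filter, 6 rose and 0 fell (limma, with 0 at an unadjusted p under 0.05), with 4 rises when KO replicate 1 was left out. Their summed level was 69.2 to 112 in WT and 301 to 349 in KO, and Meg3, a noncoding RNA among them, was read at 31.9, 43.2 and 29.6 in WT and 109, 183 and 236 in KO. The count of neuronal rises was 2 without WT replicate 1, and the defining genes Tubb3, Stmn2 and Slc17a7 did not pass the filter. Of 5 astrocyte genes 3 rose, with Gfap at 2.73, 7.63 and 4.12 in WT and 57.6, 36.6 and 35.2 in KO and summed levels of 56.8 to 77.5 in WT and 159 to 197 in KO. Of 5 oligodendrocyte genes 3 rose, with summed levels of 343 to 370.4 and 389 to 680.3. These sums moved with genotype, and their part in the rises of genes that neural cells also express, such as Slc12a5, Adam22 and Adgrl3, was not tested. Dendritic cell genes gave 2 rises and 4 falls of 12, with sums of 2102 to 2258 in WT and 849.9 to 1069 in KO, and monocyte genes 3 rises of 8, with sums of 564 to 702 and 1948 to 2440.3. Much of the fall in the first sum lies in Siglech, also a homeostatic microglia gene, with 3891 reads over the WT libraries and 388 over the KO libraries. Much of the rise in the second lies in F13a1, also a border-associated macrophage gene. Neither sum is thus a measure of dendritic cells or monocytes. Without KO replicate 1, 5 monocyte genes rose, and 1 oligodendrocyte gene fell. Their part in the rises of lectins, class II and cell cycle genes was not tested. Cd4 was the single tested T cell gene and was read at 6.37, 3.81 and 4.94 in WT and 33.6, 85.5 and 104 in KO (log2 fold change 3.52 ± 0.48, adjusted p = 5.68e-05), with Cd3e not passing the filter. Of 5 vessel cell genes 1 rose and 1 fell, and of 3 B and plasma cell genes 1 rose and 2 fell, or 1 fell without KO replicate 3 or WT replicate 2. Of 4 erythroid and platelet genes, 0 rose (limma, with 0 at an unadjusted p under 0.05) and 0 fell (limma, with 0 at an unadjusted p under 0.05), and no mast cell gene passed the filter. Csf3r was the single tested neutrophil gene and fell. The single tested gene of fibroblasts and choroid plexus was not called.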

How the data were processed

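RNA of sorted cells was sequenced in 12 mouse libraries, 3 in each of 4 groups, and the 6 macrophage libraries are described here. The deposited values, made by the authors, cover 25904 genes and are log2 of the reads in a gene over the size factor of its library, plus 1. This unit was read from the values: 100.0% of 310848 values gave whole reads within 0.01 of a read. Per the submitters' processing notes, bcl2fastq, CASAVA, STAR and GRCm38 were used. The sources used here name no read counter, annotation or strand setting, so overlapping, antisense and near-identical genes are uncertain. Symbols came from GENCODE vM21 (25730 of 25904 identifiers had one), promoters from RefSeq on GRCm38.p6. The libraries held 2615404 to 6364994 reads in genes, which makes a single read 0.718 to 1.6 normalized counts.

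Genes reaching 10 normalized counts in 3 or more of the 12 libraries (12519, with 13385 below) were tested with limma 3.58.1 in R 4.3.3 (lmFit, eBayes with trend) on the deposited log2 values with 4 group means (residual degrees of freedom, 8). KO was compared with WT in macrophages and in microglia, and both effects with each other, with a Benjamini-Hochberg adjusted p under 0.05 as the threshold. Fold changes on this scale understate those of low genes. Against a group with 0 reads a fold is a lower bound from 3 reads over the group, and with 1 to 3 reads the ratio has an exact 95% binomial interval. Both cover counting error only. Tables were made in Python 3.11.15 with pandas 2.3.3, numpy 2.4.6 and scipy 1.17.1, and figures with matplotlib 3.10.9. The code of the fits was run on simulated reads with equal group means apart from a set of changed genes and the same dispersion for every gene. That setting is simpler than these data, so it is a check of the code and not of the calls.

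The members and gene lists were chosen with earlier results of these data known. The naming rule took Itgam, Adgre1, Cx3cr1 and Tgfbr2, then 25 genes with the strongest rise and 25 with the strongest fall (called with and without KO replicate 1, no overlap between groups, higher mean of at least 100), from every list up to 4 called members in the more common direction and 2 against it with a mean of at least 50, every tested member of the class II and iron lists, the 8 genes most above and below the rest in KO replicate 1, the 6 largest differences from microglia in each direction and the 10 highest means. Other genes named were chosen after their values were seen. Values of a few genes are not reported here. Alternatives were 2 other pseudocounts, 2 filters, 2 scalings, the 6 macrophage libraries alone, 2 eBayes settings, a Ddx3y covariate, library weights and leaving out each macrophage library.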

Additional observations from a re-analysis of the deposited data

Results flagged for a closer look

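The test of the difference between the effect of the deletion in macrophages and that in microglia set the following 12 genes apart, as the 6 largest called differences in each direction. Values are log2 differences, macrophage effect minus microglia effect, from limma with 3 libraries in each of 4 groups.

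In the positive direction the genes lost most of their level in KO microglia and changed less, or were little read, in macrophages. The difference was 9.06 ± 0.74 (adjusted p = 4.19e-07) for Csmd3, a synaptic complement-domain protein, 8.64 ± 0.89 (adjusted p = 4.28e-06) for Ecscr, a surface protein known from endothelium, and 7.75 ± 0.79 (adjusted p = 3.51e-06) for Jam2, a junction molecule. Tmem119, a defining microglial membrane protein, was read at 1629, 1540.3 and 1797 in WT and 144, 412 and 363 in KO with log2 fold changes of -2.57 in macrophages and -10.82 in microglia and a difference of 8.26 ± 0.40 (adjusted p = 1.15e-09). Olfml3, a secreted olfactomedin protein of microglia, was read at 1808, 1784 and 1928 in WT and 156.9, 457 and 382 in KO and had a difference of 7.43 ± 0.48 (adjusted p = 2.95e-08). Adamts16, a matrix protease, had a difference of 7.49 ± 0.99 (adjusted p = 4.96e-05) and was close to unread in macrophages of either genotype.

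In the negative direction the genes rose from near 0 in KO microglia, while macrophages of both genotypes carried them. The difference was -9.25 ± 0.37 (adjusted p = 1.69e-10) for Adam19, a sheddase, which was read at 269, 328 and 354 in WT and 600.2, 373 and 529 in KO in macrophages. It was -8.92 ± 0.26 (adjusted p = 4.87e-12) for Ms4a14, -8.71 ± 0.44 (adjusted p = 2.05e-09) for Ms4a7 and -8.44 ± 0.21 (adjusted p = 7.80e-13) for Ms4a4a, all members of a family of membrane proteins of myeloid cells. The Ms4a family members stood at 1393, 1198 and 1305 (Ms4a14), 2005, 1853 and 2044 (Ms4a7) and 324, 328 and 267 (Ms4a4a) in WT macrophages, so they were well read before any loss of Tgfbr2. The remaining genes were the interferon-inducible nuclear proteins Mndal (-8.24 ± 0.19, adjusted p = 3.73e-13) and Ifi203 (-8.05 ± 0.17, adjusted p = 1.94e-13). Their effects in macrophages were 0.16 ± 0.14 and 0.25 ± 0.12, against 8.40 and 8.31 in microglia.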

How the results depend on the processing

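No paired analysis was possible because the labels give the libraries no replicate numbers that groups share. The count of called genes was 3034 with the 6 macrophage libraries alone, 4996 with library weights and 2992 to 4149 with 1 macrophage library left out, against 3934. Of 824 list genes tested, 482 were called, 433 to 487 with 1 library left out and 424 to 557 in the other settings. The count of differences from microglia was 3235, and it ran from 2332 with the Ddx3y covariate to 4196 with library weights and from 2643 to 3486 with 1 library left out. The 12 largest of these differences kept their call and direction in every alternative run. The difference in mitochondrial share was 0.0625 percentage points and 0.0336 to 0.0875 with 1 library left out, an alternative chosen after seeing the data.

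Of 297 called genes named in the text, 21 lost the call in at least 1 alternative. Apart from libraries left out, the calls lost were those of Aldoa, Alox5ap, C1qa, Ccl4, Dhcr7, Rfxap, Rora, Rxrb, Tgif2 and Tnfsf9 with the 6 macrophage libraries alone, Alox5ap, C1qa, Ccl4, Cd86, Gbp8, H2-Q6, Ifi30, Nr1d2, Nr2c2 and Rxrb without the trend, Aldoa, C1qa, Cd86, Hk1, Ifi30, Pkm and Rfxap after rescaling to total reads, Ifi30 and Rfxap after upper-quartile rescaling, Hk1, Ifi30, Rfxap, Rora and Rxrb with no filter, Rfxap, Rora and Rxrb with the Ddx3y covariate, Rfxap and Tgif2 with library weights, Ccl4 and Gbp8 with robust eBayes and Jag1 with a pseudocount of 0.5. Calls were gained too. With the 6 macrophage libraries alone these were Adam19, Cxcl14, Fth1, Ms4a7 and Mx1 (adjusted p = 0.0372, 0.0186, 0.0403, 0.00796 and 0.0468). Values of genes that were not called changed sign as follows, and the cause was not tested. With library weights the log2 fold change was 0.00 for Axl, -0.02 for Ccl3, -0.23 for Hmox1, -0.09 for Ier3, 0.00 for Itga4, -0.14 for Klf2, -0.59 for Klf4, 0.01 for Rfx5, -0.03 for Rfxank and 0.01 for Smad4. With 1 library left out it ran from -0.09 to 0.03 for Axl, -0.19 to 0.67 for Ccl3, -0.84 to 1.85 for Cxcl9, -0.24 to 0.29 for Hmox1, -0.28 to 1.23 for Ier3, -0.08 to 0.02 for Itga4, -0.36 to 0.93 for Klf2, -0.81 to 0.59 for Klf4, -0.09 to 0.55 for Msl3, -0.01 to 0.20 for Rfxank and -0.14 to 0.06 for Smad4. The Ddx3y covariate gave 0.06 for Axl and -0.04 for Klf4, and a pseudocount of 0.5 gave -0.04 for Cxcl9. Rescaling moved the median of all genes from 0.00072 to -0.067 (total reads) or -0.038 (upper quartile, 44.9% of calls higher). Depth limits genes near the filter, where 1 read was worth up to 1.6 normalized counts.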

Other observations

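Several genes stood out in single macrophage libraries rather than by genotype, and their values follow with no test. Tram1l1 was read at 0, 1.27 and 0 in WT and 344, 0 and 0 in KO, at a clear level in KO replicate 1 alone. Cyp26b1, a retinoic acid hydroxylase, was read at 0.91, 0 and 0.823 in WT and 1.60, 1.75 and 2731 in KO, high in KO replicate 3 alone, and Ankrd6 was read at 0, 2.54 and 0 in WT and 0, 227 and 0 in KO, in KO replicate 2. Smim19 was read at 27.3, 30.5 and 1875 in WT and 22.4, 25.3 and 2366 in KO, high in WT replicate 3 and KO replicate 3. Pxmp4, a peroxisomal membrane protein, was read at 241, 279.6 and 30.5 in WT and 28.8, 304 and 337 in KO, low in WT replicate 3 and KO replicate 1. None of these patterns followed the genotype.

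A group of neighbouring X-linked genes was higher in the macrophage libraries that carried the Y-linked Ddx3y, WT replicate 3 and KO replicate 2. Of 12 tested genes that start beyond 167 Mb of the X chromosome (GRCm38), 9 were higher in both of these libraries than in any of the other 4, with a median log2 ratio over the 12 genes of 0.93 and a range from 0.55 to 1.32. Of 354 tested X-linked genes before that point, 11 were, with a median of 0.00. The region was chosen after the values were seen. Tlr7, an endosomal sensor of single-stranded RNA, was read at 907, 846 and 2221 in WT and 1441, 2459.8 and 1183 in KO, Tmsb4x, thymosin beta 4, at 2813, 3039 and 5684 in WT and 4685, 6983 and 3132 in KO and Msl3, a chromatin protein, at 118, 99.1 and 199 in WT and 142, 258 and 109 in KO. With the log2 level of Ddx3y as a covariate, the effect of the deletion on Tlr7 was 0.61 ± 0.15 (limma adjusted p = 0.00661) against 0.43 ± 0.33 (adjusted p = 0.337) without it. For Tmsb4x it was 0.54 ± 0.14 (adjusted p = 0.0102) against 0.36 ± 0.32 (adjusted p = 0.42), and for Msl3 0.43 ± 0.15 (adjusted p = 0.0429) against 0.26 ± 0.32 (adjusted p = 0.574). The region was picked because its genes follow Ddx3y, so smaller standard errors with that covariate are built into the choice. The calls with the covariate are therefore no evidence of a rise.

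At the library level, Apoe, a lipid carrier and one of the most abundant transcripts, took 2.99%, 3.52% and 2.77% of reads in WT and 2.36%, 2.03% and 1.75% in KO, without overlap. Cytosolic ribosomal protein genes took 0.191%, 0.2% and 0.204% in WT and 0.282%, 0.264% and 0.231% in KO, again without overlap. Both gave 0.1 in a two-sided exact permutation test, the smallest p that 3 against 3 libraries allow, among 5 such shares compared.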
